A study of Homo sapiens with 16 samples.

Results

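The effect of 36 h of TGF-beta was read against 0 h in A549, a long-established epithelial cell line from a human lung adenocarcinoma. The comparison used 4 of the 16 RNA-seq libraries of a time course of TGF-beta-induced epithelial to mesenchymal transition (EMT), namely replicates 1 and 2 at each of the 2 times. Each 36 h library was paired with the 0 h library of the same replicate number. The other 12 libraries, at 6, 12, 24, 48, 72 and 96 h, entered the same model, where they add to the estimate of the spread, and the filter for tested genes. Those at 24 and 48 h are also compared with 36 h. All libraries came from A549 cells, and the 0 h cultures had no time with TGF-beta. No other treatment or genetic change is named in the labels. The dose of TGF-beta is not given in the sources used here. There were no untreated cultures at 36 h, so TGF-beta and time in culture cannot be told apart. Whether the replicates were separate cultures is not stated in the labels, and the p-values therefore cover the spread between these libraries alone, which may be technical.

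TGF-beta is a secreted ligand that binds a pair of serine/threonine kinase receptors, which phosphorylate SMAD2 and SMAD3. These join SMAD4 and enter the nucleus, where they switch on target genes together with other transcription factors, among them the inhibitor SMAD7, which closes a feedback loop. In epithelial cells the ligand can start an EMT, in which junction proteins such as E-cadherin are lost and cells become motile. Mesenchymal cadherins, vimentin, contractile proteins and matrix proteins are gained. A549 cells are widely used for this, and they are also known for a high activity of NRF2, the transcription factor of the antioxidant response.

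Values are TPM, a relative transcript abundance corrected for gene length, after 6 abundant small RNAs had been removed and the rest rescaled to the same total. A change is the mean of the 2 within-pair differences of log2(TPM + 1), which understates the change of genes at low levels. A gene was called higher ("rose") or lower ("fell") at a limma adjusted p (Benjamini-Hochberg over all 21216 genes tested) below 0.05. The left-out range is the lowest and highest limma adjusted p when each of the 4 libraries was left out in turn. TPM keep no read totals, so the depth is unknown. Of 57773 genes in the tables, 36116 were listed at 0 in 36 h replicate 2 and 36294 in 48 h replicate 2, against 29278 to 31187 in the other libraries. So 36 h replicate 2 stood apart, and results are given with and without it. The small RNAs took 51.8% and 51.8% of the deposited TPM at 0 h, then 51.4% and 59.1% at 36 h. Pearson's r of log2(TPM + 1) across genes was 0.978 between the 0 h libraries and 0.953 between the 36 h libraries. With 2 libraries a time, the smallest p that an exact permutation of single values can give is 0.333.

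At 36 h, 796 genes were called higher (3.75% of genes tested) and 722 lower (3.4%) by limma, and all of them moved the same way in both pairs. The change is the mean of these pairs, so calls favour genes whose pairs agree. Over all 21216 tested genes, 5555 were above 0 in both pairs and 7534 were below 0 in both. At least a 2-fold change was seen in 661 of the genes that rose and 553 of those that fell. The median log2 change was 1.59 among the former and -1.31 among the latter. The genes that rose had a median level of 8.77 TPM at 0 h, then 31.6 TPM at 36 h, and those that fell 24.8 TPM and 7.77 TPM. In 786 and 716 of them the 0 h and 36 h libraries did not overlap. Over all tested genes 19.4% had both 36 h libraries above both 0 h libraries and 27.7% had both below. The median over all tested genes was -0.07, with 0.02 in the replicate 1 pair and -0.17 in the replicate 2 pair. Changes in these bulk samples can be of cells or of RNA per cell: fewer cells of a type and less RNA per cell cannot be told apart. The counts rest on the pooled spread and on single libraries, and of the 4 they changed least when 36 h replicate 1 was left out. They were then 687 and 717, but these held only 1055 of the 1518 genes called with all libraries. They were 221 and 133 when 36 h replicate 2 was left out, 335 and 241 when 0 h replicate 1 was, and 331 and 199 when 0 h replicate 2 was. With no replicate block they were 340 and 250. A fit of the 4 libraries alone called 0 genes, with 3438 at an unadjusted p below 0.05 in limma.

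**Figure D1:**
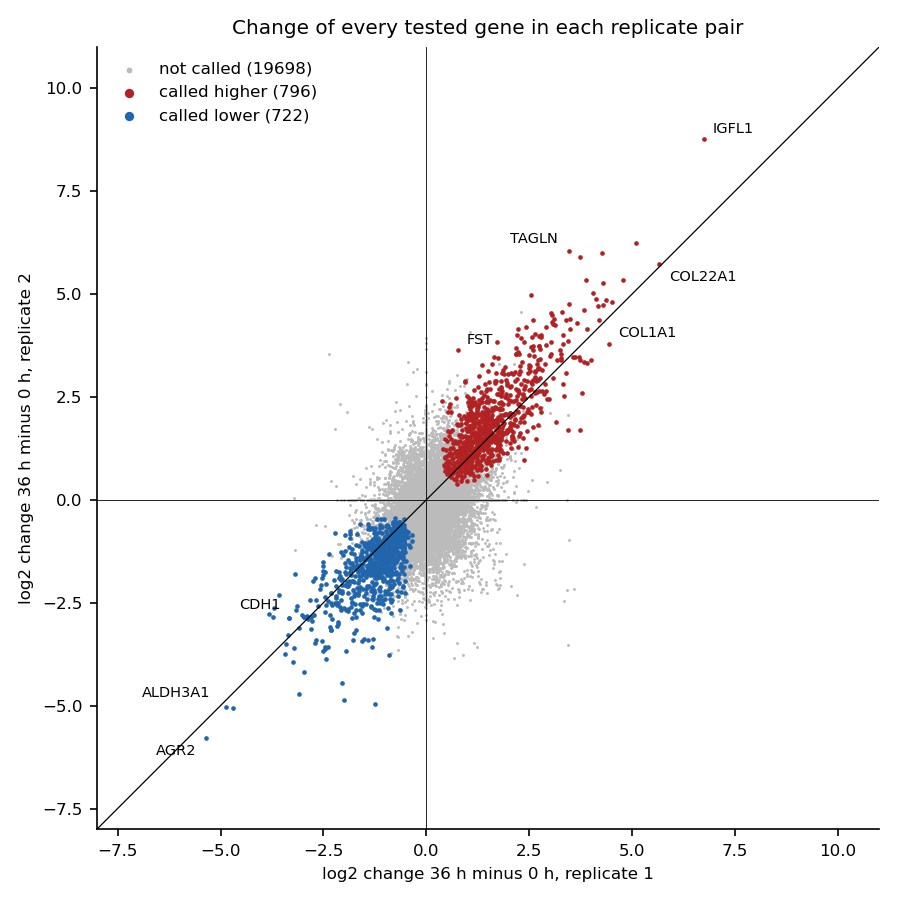
Log2 change from 0 h to 36 h of every tested gene in the replicate 1 pair (x axis) and the replicate 2 pair (y axis), with 796 genes called higher in red, 722 called lower in blue and the others in grey, and a line of equal change. All called genes lie in the quadrants where both pairs have the same sign, with IGFL1 farthest up and AGR2 and ALDH3A1 farthest down among those named.

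Gene lists for pathways and cell types, with 1358 entries in 57 lists, were read against the shares of 3.75% and 3.4%. The lists hold chosen members and not every gene of a family. Some genes are on several lists and are counted in each, so the lists' counts are not separate results. Lists of secreted matrix, SMAD-induced and adhesion genes had most of their calls on the higher side. NRF2 targets, secretory epithelial genes and acute-phase proteins had all of theirs on the lower side.

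**Figure D2:**
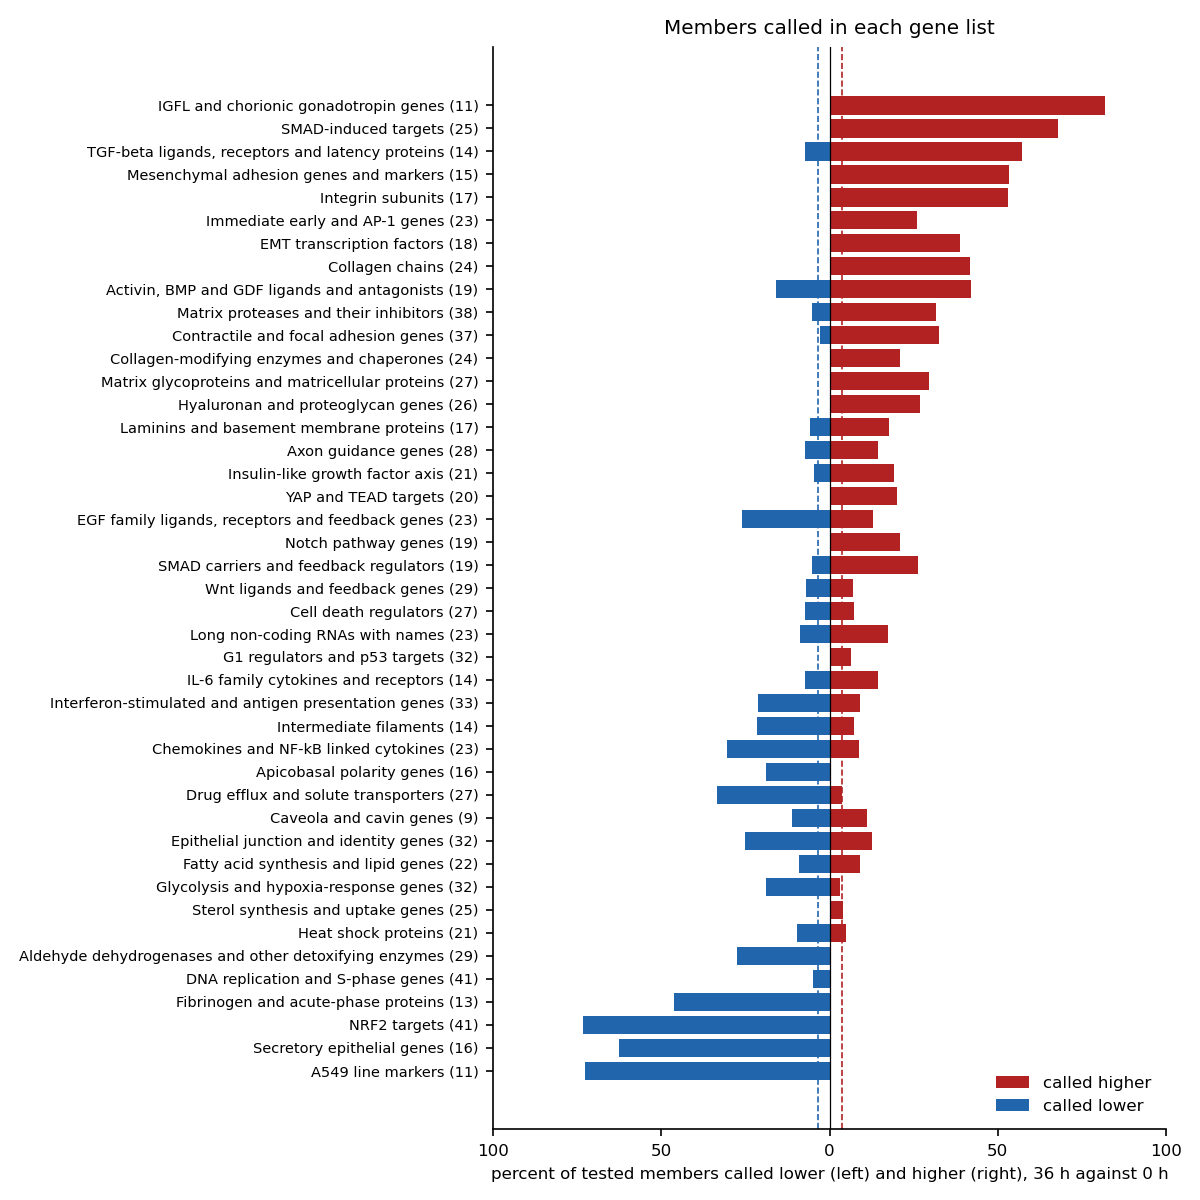
Percent of tested members called higher (red, right) and lower (blue, left) in each list with at least 9 tested members and at least 1 call, with the number tested in brackets, ordered by the list's median change; dashed lines mark the shares over all genes, 3.75% higher and 3.4% lower. The IGFL and chorionic gonadotropin list is at the top and the A549 line markers and secretory genes at the bottom.

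The gene that rose most was IGFL1, a small secreted protein of the insulin-like growth factor-like family, which went from 1.76 and 2.16 TPM at 0 h to 298 and 1363 TPM at 36 h. IGFL1 had a log2 change of 7.76 (SE 0.63, adjusted p = 8.27e-05 by limma, left-out range 0.000596 to 0.00338). Both 36 h libraries were far above both 0 h libraries, and replicate 2 was the higher of the pair at 36 h. COL22A1, a collagen of tissue junctions, rose from 0.581 and 0.207 TPM at 0 h to 78.5 and 63.0 TPM at 36 h. COL22A1 had a log2 change of 5.69 (SE 0.34, adjusted p = 1.08e-05 by limma, left-out range 0.000195 to 0.000678). SLN, sarcolipin, a small membrane inhibitor of the sarcoplasmic reticulum calcium pump, rose from 0.145 and 0.332 to 38.4 and 99.3 TPM. TNFAIP6, a secreted hyaluronan-binding protein, rose from 1.25 and 0.539 to 42.5 and 97.8 TPM. These genes were near the lower limit of detection at 0 h, so the size of their log2 change depends on the pseudocount. MMP2, a metalloproteinase of the gelatinase kind, rose from 8.82 and 0.871 TPM at 0 h to 191 and 70.5 TPM at 36 h. MMP2 had a log2 change of 4.77 (SE 0.37, adjusted p = 6.47e-05 by limma, left-out range 0.000596 to 0.00292). TAGLN, the smooth muscle protein transgelin, which binds actin, rose from 80.2 and 9.31 TPM at 0 h to 891 and 681 TPM at 36 h. TAGLN had a log2 change of 4.75 (SE 0.49, adjusted p = 0.000223 by limma, left-out range 0.000188 to 0.0071). In both genes 0 h replicate 2 was about an order of magnitude below 0 h replicate 1, so the change was larger in the replicate 2 pair. ITGA11, a collagen-binding integrin subunit, rose from 8.47 and 1.47 to 139 and 99.2 TPM. ADAM19, a membrane metalloproteinase, rose from 11.5 and 3.28 to 215 and 125 TPM. WNT5B, a ligand of non-canonical Wnt signalling, rose from 2.45 and 1.16 to 66.6 and 56.8 TPM. Also among the 15 largest rises were CGB8 (4.61), IGFL3 (4.55), LCE3D (4.44), a late cornified envelope gene, R3HDML (5.06) and the non-coding gene CTD-2066L21.3 (4.81), on the log2 scale. Of the 15, 14 were also called without 36 h replicate 2 and 15 without the replicate block. LCE3D lost its call without 36 h replicate 2 or 0 h replicate 1 (limma adjusted p up to 0.1).

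**Figure D3:**
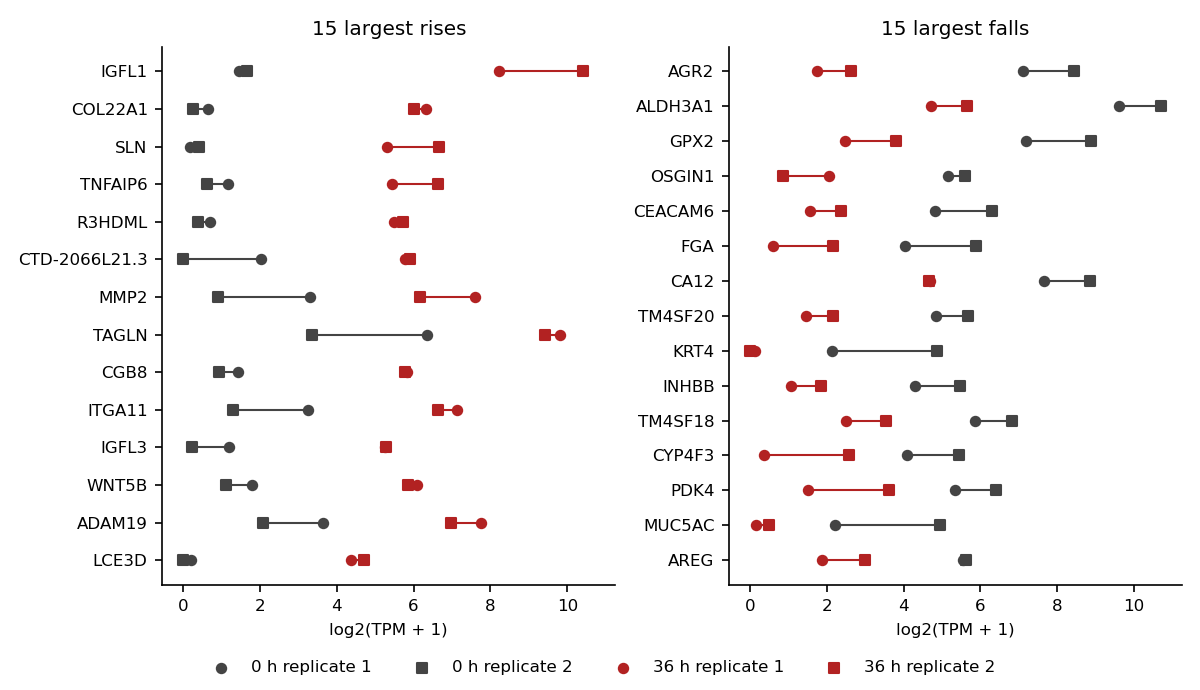
Levels as log2(TPM + 1) of 14 of the 15 genes with the largest rise (left) and the 15 with the largest fall (right) in each 0 h library (grey) and 36 h library (red), circles for replicate 1 and squares for replicate 2, with a line joining the libraries of a time. In all 29 genes shown the grey and red points are apart, and in all 15 falls 0 h replicate 2 is above 0 h replicate 1.

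The gene that fell most was AGR2, an endoplasmic reticulum protein needed for mucin folding, which went from 136 and 344 TPM at 0 h to 2.37 and 5.26 TPM at 36 h. AGR2 had a log2 change of -5.57 (SE 0.46, adjusted p = 8.27e-05 by limma, left-out range 0.000912 to 0.00343). ALDH3A1, an aldehyde dehydrogenase that clears lipid and xenobiotic aldehydes, fell from 774 and 1672 TPM at 0 h to 25.4 and 49.6 TPM at 36 h. ALDH3A1 had a log2 change of -4.96 (SE 0.43, adjusted p = 0.0001 by limma, left-out range 0.00102 to 0.00391). GPX2, a glutathione peroxidase of epithelia, fell from 143 and 470.1 TPM at 0 h to 4.53 and 13.0 TPM at 36 h. GPX2 had a log2 change of -4.89 (SE 0.56, adjusted p = 0.000381 by limma, left-out range 0.00272 to 0.0126). In all 15 of the largest falls 0 h replicate 2 was the higher 0 h library, and in 12 of them 36 h replicate 2 was the higher 36 h library. CA12, a membrane carbonic anhydrase, fell from 200.1 and 462 to 24.7 and 24.4 TPM. OSGIN1, an oxidative stress-induced growth inhibitor, fell from 34.8 and 47.6 to 3.19 and 0.832 TPM. CEACAM6, a cell surface adhesion glycoprotein, fell from 27.3 and 78.3 to 1.98 and 4.16 TPM. FGA, the alpha chain of fibrinogen, fell from 15.3 and 58.4 to 0.514 and 3.45 TPM. INHBB, the activin beta B subunit, fell from 18.7 and 43.2 to 1.11 and 2.64 TPM. CYP4F3, a leukotriene and fatty acid hydroxylase, fell from 16.1 and 42.8 to 0.288 and 5.04 TPM. The tetraspanin-like membrane proteins TM4SF20 and TM4SF18 fell from 28.0 and 50.4 to 1.75 and 3.52 TPM and from 57.6 and 112 to 4.67 and 10.6 TPM. PDK4, the kinase that switches off pyruvate dehydrogenase, fell from 39.4 and 83.6 to 1.87 and 11.4 TPM. The others were KRT4 (-3.43), an epithelial keratin, MUC5AC (-3.24), a gel-forming airway mucin, and AREG (-3.16), amphiregulin, on the log2 scale. Of the 15, 10 were also called without 36 h replicate 2 and 9 without the replicate block, against 14 and 15 of the largest rises. KRT4 and MUC5AC lost their calls without 36 h replicate 2 or 0 h replicate 2 (limma adjusted p up to 0.117). TM4SF20 lost its call without 36 h replicate 2, 0 h replicate 1 or 0 h replicate 2 (limma adjusted p up to 0.147). PDK4 and AREG lost their calls whichever of the 4 libraries was left out (limma adjusted p up to 0.189). GPX2, FGA, TM4SF20, TM4SF18, PDK4 and MUC5AC were not called without the replicate block (limma adjusted p up to 0.3).

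Targets that SMADs are known to induce were described with the promoters of the members that had one in the RefSeq table (GRCh38.p14, 250 bases before to 50 after a start). The CAGA box, CAGAC on either strand, is the core of the element that SMAD3 and SMAD4 bind, and is shown in capitals below (as GTCTG where it lies on the other strand). These stretches are printed because they lie just before the starts of called SMAD-induced genes. They are chr18:48951069-48951202 (minus strand) for SMAD7, chr3:170357588-170357632 (plus) for SKIL, chr20:57690733-57690777 (minus) for PMEPA1 and chr2:186589839-186589883 (plus) for ITGAV.
SMAD7: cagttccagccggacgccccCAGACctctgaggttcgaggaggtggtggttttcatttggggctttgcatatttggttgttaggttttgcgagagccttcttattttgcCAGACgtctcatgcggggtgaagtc
SKIL: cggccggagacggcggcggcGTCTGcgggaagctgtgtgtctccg
PMEPA1: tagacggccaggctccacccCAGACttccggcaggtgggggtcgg
ITGAV: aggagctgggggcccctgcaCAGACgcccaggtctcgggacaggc
The 12 called SMAD-induced members with a promoter entry had 22 windows, and 10 of these (45.5%) held the letters, against 49.7% of the windows of genes called higher, 42.5% of those called lower and 44.2% of all 15654 windows of the 10751 tested genes with an entry. The letters are short and common, so their presence in a window is a description and not a binding site.

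Of 26 listed SMAD-induced targets, 25 were tested, 17 rose and 0 fell, with a median log2 change of 1.80 over those tested. COL4A1, a chain of basement membrane collagen, rose from 69.2 and 29.6 TPM at 0 h to 740.3 and 632 TPM at 36 h. COL4A1 had a log2 change of 3.89 (SE 0.39, adjusted p = 0.000195 by limma, left-out range 0.00155 to 0.00666). PMEPA1, a membrane protein that sequesters SMADs, rose from 152 and 50.4 TPM at 0 h to 690.0 and 594 TPM at 36 h. PMEPA1 had a log2 change of 2.86 (SE 0.32, adjusted p = 0.000345 by limma, left-out range 0.000756 to 0.0119). In both, replicate 2 was the lower library at 0 h and the 36 h libraries were close to each other. PDGFB, a growth factor for mesenchymal cells, rose from 5.06 and 4.79 to 89.5 and 57.0 TPM. TGFBI, a secreted matrix protein, rose from 1476 and 648 to 6697 and 8383 TPM. CTGF, a matricellular protein, rose from 58.3 and 14.2 to 705 and 169 TPM. JUNB, an AP-1 subunit, rose from 97.1 and 51.4 to 398 and 349 TPM. SMAD7, the inhibitor whose promoter is printed above, rose from 34.0 and 17.1 TPM at 0 h to 66.3 and 41.6 TPM at 36 h. SMAD7 had a log2 change of 1.09 (SE 0.27, adjusted p = 0.0325 by limma, call lost without 0 h replicate 1, 0 h replicate 2, 36 h replicate 1 and 36 h replicate 2, left-out range 0.0961 to 0.233). SKIL, the repressor SnoN, which TGF-beta also induces as feedback, rose from 128 and 96.5 to 404 and 366 TPM. ITGAV, the integrin subunit that takes part in freeing latent TGF-beta, rose from 161 and 101 to 444 and 453 TPM. The number that rose was 8 without the replicate block and 10 leaving out 36 h replicate 2. CDKN2B, a cell cycle inhibitor on the same list, was listed at 0 in all 4 libraries and was not tested. ITGAV lost its call without 36 h replicate 2 (limma adjusted p up to 0.0743). JUNB lost its call without 36 h replicate 2 or 0 h replicate 2 (limma adjusted p up to 0.0766). SKIL lost its call whichever of the 4 libraries was left out (limma adjusted p up to 0.336). CTGF was not called without the replicate block (limma adjusted p up to 0.119). SMAD7 and SKIL were not called without the replicate block or on TPM as deposited (limma adjusted p up to 0.308).

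Among ligands, receptors and latency proteins of TGF-beta itself, 14 of 16 listed genes were tested, 8 rose and 1 fell. THBS1, thrombospondin-1, which can activate latent TGF-beta, rose from 122 and 58.4 TPM at 0 h to 1374 and 1048 TPM at 36 h. THBS1 had a log2 change of 3.81 (SE 0.30, adjusted p = 7.95e-05 by limma, left-out range 0.000653 to 0.00338). TGFBR1, the signalling receptor kinase, rose from 64.4 and 41.2 TPM at 0 h to 259 and 212 TPM at 36 h. TGFBR1 had a log2 change of 2.16 (SE 0.32, adjusted p = 0.00196 by limma, left-out range 0.00759 to 0.0454). The ligand TGFB1 rose from 24.7 and 18.6 to 85.5 and 38.8 TPM. FURIN, the protease that cleaves its precursor, rose from 29.2 and 21.2 to 104 and 102 TPM. LTBP2 and LTBP3, latent TGF-beta binding proteins, rose from 16.9 and 8.27 to 77.3 and 38.1 TPM and from 41.7 and 31.1 to 203 and 92.4 TPM. TGFBR3, the co-receptor betaglycan, went the other way and fell from 8.49 and 10.99 TPM at 0 h to 0.864 and 0.416 TPM at 36 h. TGFBR3 had a log2 change of -2.71 (SE 0.43, adjusted p = 0.00261 by limma, call lost without 36 h replicate 2, left-out range 0.00597 to 0.0575). Rises numbered 2 without the replicate block. TGFB1 lost its call without 36 h replicate 2 or 0 h replicate 1 (limma adjusted p up to 0.1). TGFBR1, LTBP2 and LTBP3 were not called without the replicate block (limma adjusted p up to 0.13). TGFB1 was not called without the replicate block or on TPM as deposited (limma adjusted p up to 0.28).

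Of the SMAD carriers and their regulators, 19 of 20 listed genes were tested, 5 rose and 1 fell. LDLRAD4, a membrane inhibitor of SMAD activation related to PMEPA1, rose from 6.16 and 4.75 TPM at 0 h to 46.9 and 75.1 TPM at 36 h. LDLRAD4 had a log2 change of 3.23 (SE 0.51, adjusted p = 0.00261 by limma, call lost without 36 h replicate 2, left-out range 0.00784 to 0.059). SMURF2, a ubiquitin ligase for receptors and SMADs, rose from 42.1 and 36.3 to 99.8 and 69.9 TPM. SMAD3, the carrier itself, fell from 122 and 162 TPM at 0 h to 50.4 and 38.6 TPM at 36 h. SMAD3 had a log2 change of -1.65 (SE 0.24, adjusted p = 0.00157 by limma, left-out range 0.00539 to 0.0375). Both SMAD3 libraries at 36 h were below both at 0 h, and SMAD3 was the list's only called member on the lower side. That count of rises was 1 leaving out 36 h replicate 2 and 2 without the replicate block, on TPM as deposited or leaving out 36 h replicate 1, 0 h replicate 1 or 0 h replicate 2. In the wider family, 19 of 21 activin, BMP and GDF genes were tested, 8 rose and 3 fell. GREM1, a BMP antagonist, rose from 5.23 and 4.64 to 45.6 and 75.1 TPM. BMP6, a ligand, rose from 6.16 and 6.18 to 28.9 and 59.6 TPM. FST, the activin antagonist follistatin, rose from 2.59 and 3.34 to 5.16 and 52.7 TPM, with 36 h replicate 2 far above the other 3 libraries. BMP1, a protease that processes procollagen and is not a BMP ligand, rose from 37.8 and 26.8 to 117 and 95.5 TPM. BMP4 fell from 20.8 and 28.8 to 2.67 and 6.14 TPM. GDF15, a stress-induced ligand, fell from 80.0 and 94.9 to 13.3 and 6.55 TPM. Of the 4 ID genes, classical BMP targets that block differentiation, ID2 fell from 50.8 and 54.0 to 18.2 and 24.0 TPM. ID1 was at 139 and 174 TPM at 0 h, then 183 and 392 TPM at 36 h. ID3 was at 145 and 116 TPM at 0 h, then 214 and 209 TPM at 36 h. Neither was called (limma adjusted p = 0.0738 and 0.0871). The activin, BMP and GDF members that rose numbered 3 without the replicate block, 4 on TPM as deposited or leaving out 36 h replicate 2 or 0 h replicate 2 and 5 leaving out 0 h replicate 1. FST lost its call without 36 h replicate 2 or 0 h replicate 2 (limma adjusted p up to 0.502). SMURF2, BMP4 and ID2 lost their calls whichever of the 4 libraries was left out (limma adjusted p up to 0.365). BMP4 was not called without the replicate block (limma adjusted p up to 0.195). SMURF2 and FST were not called without the replicate block or on TPM as deposited (limma adjusted p up to 0.35). ID2 was not called without the replicate block or with trimmed-mean scaling (limma adjusted p up to 0.289).

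Among EMT transcription factors, 18 of 21 listed genes were tested, 7 rose and 0 fell, with a median log2 change of 0.80. SNAI1, the repressor Snail, rose from 1.85 and 0.643 TPM at 0 h to 11.9 and 7.78 TPM at 36 h. SNAI1 had a log2 change of 2.30 (SE 0.31, adjusted p = 0.00102 by limma, left-out range 0.00534 to 0.0269). SNAI2, Slug, rose from 2.08 and 0.104 TPM at 0 h to 6.42 and 4.92 TPM at 36 h. SNAI2 had a log2 change of 1.85 (SE 0.40, adjusted p = 0.0154 by limma, call lost without 0 h replicate 1, 0 h replicate 2 and 36 h replicate 2, left-out range 0.00727 to 0.232). Both stayed at low levels, and 0 h replicate 2 was close to the lower limit of detection in each. HMGA2, a chromatin protein that SMADs induce, rose from 7.49 and 11.8 to 35.4 and 35.1 TPM. SOX4, a transcription factor of early EMT, rose from 68.6 and 43.4 to 119 and 116 TPM. ETS2 rose from 60.2 and 33.4 to 169 and 143 TPM. RUNX1 rose from 10.7 and 5.33 to 43.8 and 16.04 TPM. ZEB1 was at 28.5 and 27.2 TPM at 0 h, then 52.5 and 46.3 TPM at 36 h. ZEB2 was at 3.32 and 1.41 TPM at 0 h, then 5.80 and 3.13 TPM at 36 h. TWIST1 was at 3.86 and 3.32 TPM at 0 h, then 2.28 and 2.08 TPM at 36 h. These 3 were not called by limma (adjusted p = 0.257, 0.125 and 0.403), although both ZEB1 libraries at 36 h lay above both at 0 h. The number of factors that rose was 2 leaving out 36 h replicate 2, 3 without the replicate block or leaving out 0 h replicate 1 or 0 h replicate 2 and 4 on TPM as deposited or leaving out 36 h replicate 1. SOX4 lost its call without 36 h replicate 2 or 0 h replicate 2 (limma adjusted p up to 0.0717). HMGA2 lost its call without 36 h replicate 2, 36 h replicate 1 or 0 h replicate 1 (limma adjusted p up to 0.195). RUNX1 lost its call whichever of the 4 libraries was left out (limma adjusted p up to 0.107). SNAI1 and SNAI2 were not called without the replicate block (limma adjusted p up to 0.355). HMGA2 was not called on TPM as deposited (limma adjusted p up to 0.0676). RUNX1 was not called without the replicate block or on TPM as deposited (limma adjusted p up to 0.302).

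Epithelial junction and identity genes moved in both directions: 32 of 40 listed genes were tested, 4 rose and 8 fell. CDH1, E-cadherin, the calcium-dependent adhesion protein of epithelial junctions, fell from 30.1 and 57.1 TPM at 0 h to 2.10 and 6.97 TPM at 36 h. CDH1 had a log2 change of -3.10 (SE 0.34, adjusted p = 0.000305 by limma, left-out range 0.00335 to 0.00737). ELF3 and EHF, epithelial ETS transcription factors, fell from 193 and 252 to 23.8 and 34.1 TPM and from 10.1 and 20.5 to 1.01 and 2.25 TPM. The plaque proteins PKP2, PKP3 and PPL fell by log2 changes of -1.37, -1.41 and -2.19, and the tight junction scaffold TJP3 of -2.12. CLDN4, a tight junction claudin, rose from 3.01 and 3.57 to 21.5 and 41.0 TPM. The desmosomal cadherin DSC2 rose from 5.17 and 4.48 to 14.8 and 19.9 TPM. The catenins CTNNB1 and CTNNA1 rose from 224 and 190.2 to 403 and 449.6 TPM and from 239.8 and 256 to 379 and 415 TPM. These catenins thus rose while most of the list's called members fell. EPCAM, an epithelial surface protein, was at 8.95 and 9.37 TPM at 0 h, then 2.49 and 5.38 TPM at 36 h and was not called (limma adjusted p = 0.101). The members that fell numbered 1 leaving out 36 h replicate 2, 2 without the replicate block and 3 leaving out 0 h replicate 1 or 0 h replicate 2, and those that rose 1 leaving out 36 h replicate 2 or 0 h replicate 1 and 2 leaving out 0 h replicate 2. TJP3 lost its call without 36 h replicate 2 (limma adjusted p up to 0.0525). ELF3 and CLDN4 lost their calls without 36 h replicate 2 or 0 h replicate 1 (limma adjusted p up to 0.133). PKP2, PKP3, PPL and DSC2 lost their calls without 36 h replicate 2, 0 h replicate 1 or 0 h replicate 2 (limma adjusted p up to 0.221). EHF and CTNNA1 lost their calls whichever of the 4 libraries was left out (limma adjusted p up to 0.238). CDH1, ELF3, EHF, PKP2 and PPL were not called without the replicate block (limma adjusted p up to 0.0992). CTNNA1 was not called without the replicate block, on TPM as deposited or with trimmed-mean scaling (limma adjusted p up to 0.225).

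Snail and ZEB repressors bind E-boxes, here CAGGTG on either strand, and 3 of the 7 called junction genes with a promoter entry held one within 250 bases before a start. The windows are printed because these genes fell (ELF3, TJP3) or rose (DSC2) with the same letters present. They are chr1:202010447-202010492 (plus strand) for ELF3, chr19:3721710-3721736 (plus) for TJP3 and chr18:31102552-31102597 (minus) for DSC2, with the E-box in capitals.
ELF3: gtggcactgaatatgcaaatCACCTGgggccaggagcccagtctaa
TJP3: acctggaggaggaagaggggCAGGTGc
DSC2: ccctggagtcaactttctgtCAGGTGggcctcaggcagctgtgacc
Over these 7 genes, 3 of 13 windows (23.1%) held the letters, against 18.8% of all windows, 20.4% of windows of genes called higher and 21.4% of those called lower.

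Of 16 apicobasal polarity genes, all tested, 0 rose and 3 fell. LLGL2, the basolateral Lgl homologue, fell from 55.9 and 60.9 to 14.9 and 16.4 TPM. PARD6B, a PAR complex scaffold, fell from 20.9 and 26.2 to 6.28 and 6.60 TPM. Its homologue PARD6A fell from 4.50 and 5.74 to 2.04 and 0.954 TPM. The polarity genes that fell numbered 1 leaving out 36 h replicate 2 or 0 h replicate 1. Among 14 intermediate filament genes, all tested, VIM, the mesenchymal filament vimentin, rose from 1148 and 1026 TPM at 0 h to 2251 and 2327 TPM at 36 h. VIM had a log2 change of 1.08 (SE 0.19, adjusted p = 0.0046 by limma, call lost without 0 h replicate 2 and 36 h replicate 2, left-out range 0.0197 to 0.0958). KRT19, a simple epithelial keratin, fell from 105 and 104 TPM at 0 h to 14.1 and 13.6 TPM at 36 h. KRT19 had a log2 change of -2.82 (SE 0.61, adjusted p = 0.0155 by limma, call lost without 0 h replicate 1, 0 h replicate 2 and 36 h replicate 2, left-out range 0.0468 to 0.171). KRT18 fell from 4244 and 5667 to 2567 and 3016 TPM. SYNM, synemin, fell from 42.9 and 36.5 to 20.8 and 15.04 TPM. Filament genes that rose numbered 0 with trimmed-mean scaling or leaving out 36 h replicate 2 or 0 h replicate 2. Those that fell numbered 0 leaving out 36 h replicate 2, 0 h replicate 1 or 0 h replicate 2. KRT8, the partner of KRT18, was at 3354 and 4067 TPM at 0 h, then 2146 and 2545 TPM at 36 h, with no overlap between the times, and was not called (limma adjusted p = 0.121). Keratin 8 and 18 transcripts thus stayed abundant at 36 h, above vimentin in each library except KRT8 in replicate 1. Of 18 mesenchymal adhesion genes 15 were tested, 8 rose and 0 fell. CDH2, N-cadherin, rose from 76.4 and 34.2 TPM at 0 h to 225 and 122 TPM at 36 h. CDH2 had a log2 change of 1.68 (SE 0.16, adjusted p = 0.000155 by limma, left-out range 0.00123 to 0.00507). The cadherins CDH11, CDH4 and CDH6 rose from 2.37 and 0.643 to 35.3 and 4.30 TPM, from 8.34 and 3.71 to 44.2 and 13.6 TPM and from 4.61 and 13.0 to 19.5 and 41.8 TPM. NT5E, the ectonucleotidase CD73, rose from 30.9 and 31.4 to 179 and 203 TPM. SPARC, a collagen-binding matricellular protein, rose from 14.4 and 2.05 to 89.2 and 38.7 TPM. The number of mesenchymal adhesion genes that rose was 2 without the replicate block and 5 leaving out 36 h replicate 2 or 0 h replicate 1. CDH4 lost its call without 0 h replicate 1 (limma adjusted p up to 0.0655). LLGL2 and CDH6 lost their calls without 36 h replicate 2 or 0 h replicate 1 (limma adjusted p up to 0.157). PARD6A and SYNM lost their calls without 36 h replicate 2, 0 h replicate 1 or 0 h replicate 2 (limma adjusted p up to 0.496). KRT18 and CDH11 lost their calls whichever of the 4 libraries was left out (limma adjusted p up to 0.391). CDH2, CDH4, CDH6 and SPARC were not called without the replicate block (limma adjusted p up to 0.278). VIM was not called with trimmed-mean scaling (limma adjusted p up to 0.0564). PARD6A and KRT18 were not called without the replicate block or with trimmed-mean scaling (limma adjusted p up to 0.311). CDH11 was not called without the replicate block or on TPM as deposited (limma adjusted p up to 0.314).

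Of 28 listed collagen chains 24 were tested, 10 rose, 0 fell and 14 were not called. Both 36 h libraries were above both 0 h libraries in 14 of the 24 (19.4% over all genes). They were below both in 4 of the 24 (27.7% over all genes). Off the list, and chosen after their values were seen, COL15A1 rose from 0.208 and 0 to 2.41 and 1.25 TPM. COL21A1 fell from 3.92 and 3.30 to 0.329 and 0.929 TPM. The summed level of the listed chains went from 650.5 and 433 TPM at 0 h to 3002 and 1968 TPM at 36 h. Beside COL22A1 and COL4A1, described above, COL1A1, the main fibrillar collagen chain, rose from 8.63 and 2.74 TPM at 0 h to 209 and 50.7 TPM at 36 h. COL1A1 had a log2 change of 4.12 (SE 0.50, adjusted p = 0.000597 by limma, left-out range 0.00632 to 0.0129). COL4A2, the partner of COL4A1, rose from 105 and 53.7 to 779.7 and 382 TPM. COL4A3 and COL4A4, whose genes lie head to head, rose from 11.6 and 11.9 to 35.9 and 68.4 TPM and from 10.9 and 7.11 to 48.2 and 54.2 TPM. COL5A1 and COL5A2, chains of the collagen V that nucleates fibrils, rose from 49.7 and 8.79 to 332 and 73.0 TPM and from 133 and 92.8 to 352 and 353 TPM. COL27A1 and COL7A1 rose by log2 changes of 1.62 and 1.22. COL1A1 and COL5A1 were higher in replicate 1 at both times. Summed fibroblast markers were 6.93 and 4.52 TPM at 0 h, then 13.3 and 18.9 TPM at 36 h, with 7 of 12 markers tested, 0 called by limma and 4 above 0 at an unadjusted p below 0.05. The part of these markers in the collagen result was not tested. The number of collagen chains that rose was 6 without the replicate block. COL4A3 lost its call without 36 h replicate 2 or 0 h replicate 2 (limma adjusted p up to 0.112). COL27A1 lost its call without 36 h replicate 2, 0 h replicate 1 or 0 h replicate 2 (limma adjusted p up to 0.26). COL7A1 lost its call without 36 h replicate 2, 36 h replicate 1 or 0 h replicate 1 (limma adjusted p up to 0.175). COL15A1 and COL21A1 lost their calls whichever of the 4 libraries was left out (limma adjusted p up to 0.366). COL1A1 and COL5A1 were not called without the replicate block (limma adjusted p up to 0.283). COL15A1, COL27A1 and COL7A1 were not called without the replicate block or on TPM as deposited (limma adjusted p up to 0.309). COL21A1 was not called without the replicate block or with trimmed-mean scaling (limma adjusted p up to 0.203).

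Of 25 collagen-modifying enzymes and chaperones 24 were tested, 5 rose and 0 fell. P4HA3, a prolyl hydroxylase subunit, rose from 29.9 and 10.1 TPM at 0 h to 163 and 202 TPM at 36 h. P4HA3 had a log2 change of 3.30 (SE 0.38, adjusted p = 0.000372 by limma, left-out range 0.000752 to 0.012). P4HA2, another such subunit, rose from 41.4 and 39.0 to 86.1 and 115 TPM. LOXL4, a lysyl oxidase that cross-links collagen, rose from 3.47 and 3.01 to 11.7 and 8.83 TPM. LOXL2 was also called, although its libraries overlapped (79.7 and 53.1 TPM at 0 h, then 178 and 74.5 TPM at 36 h). Of 19 laminins and basement membrane proteins 17 were tested, 3 rose and 1 fell. SPOCK1, a proteoglycan, rose from 21.6 and 3.01 to 248 and 106 TPM. NID1, nidogen, rose from 3.53 and 1.78 to 20.7 and 13.0 TPM. LAMA3, a laminin alpha chain, fell from 16.9 and 24.4 to 3.37 and 9.07 TPM. Its level was lowest in 36 h replicate 1. Laminin and basement membrane genes that rose numbered 1 without the replicate block. The enzymes that rose numbered 3 leaving out 36 h replicate 2 or 0 h replicate 2. LAMA3 lost its call without 0 h replicate 1 (limma adjusted p up to 0.0575). NID1 lost its call without 36 h replicate 2, 0 h replicate 1 or 0 h replicate 2 (limma adjusted p up to 0.0995). LOXL4 and LOXL2 lost their calls whichever of the 4 libraries was left out (limma adjusted p up to 0.272). SPOCK1, NID1 and LAMA3 were not called without the replicate block (limma adjusted p up to 0.165). LOXL2 was not called without the replicate block or on TPM as deposited (limma adjusted p up to 0.505).

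Of 32 matrix glycoproteins 27 were tested, 8 rose and 0 fell. FN1, fibronectin, a ligand of several integrins, rose from 280.3 and 173 TPM at 0 h to 1429 and 1026 TPM at 36 h. FN1 had a log2 change of 2.46 (SE 0.24, adjusted p = 0.000164 by limma, left-out range 0.00134 to 0.00637). TGFBI rose from 1476 and 648 TPM at 0 h to 6697 and 8383 TPM at 36 h. TGFBI had a log2 change of 2.94 (SE 0.36, adjusted p = 0.000635 by limma, left-out range 0.00103 to 0.0198). It was the most abundant of the called members at both times. IGFBP7, a secreted matrix-bound protein, rose from 184 and 77.6 to 849 and 1254 TPM. Of 31 hyaluronan and proteoglycan genes 26 were tested, 7 rose and 0 fell. VCAN, versican, a large hyaluronan-binding proteoglycan, rose from 101 and 139 to 459.6 and 907 TPM. XYLT1, which starts glycosaminoglycan chains on core proteins, rose from 4.94 and 0.995 to 39.4 and 20.2 TPM. SDC4, a syndecan, rose from 24.0 and 20.6 to 88.0 and 98.8 TPM. The numbers that rose were 4 leaving out 36 h replicate 2 for hyaluronan and proteoglycan genes and 5 without the replicate block for glycoproteins. XYLT1 lost its call without 36 h replicate 2 (limma adjusted p up to 0.0684). XYLT1 was not called without the replicate block (limma adjusted p up to 0.114).

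Integrin subunits, the matrix receptors, included 17 tested of 19 listed, 9 of which rose and 0 fell, with a median log2 change of 0.999. ITGA1 and ITGA2, collagen receptors like ITGA11, rose from 2.80 and 0.995 to 30.9 and 14.5 TPM and from 19.9 and 16.7 to 92.6 and 151 TPM. ITGA5, the fibronectin receptor subunit, rose from 18.9 and 13.4 to 69.3 and 38.5 TPM. ITGB3 rose from 3.28 and 1.60 to 10.3 and 4.55 TPM. ITGB6, whose heterodimer with ITGAV can activate latent TGF-beta, rose from 14.2 and 7.03 to 55.4 and 65.7 TPM. ITGA3 and ITGB4, laminin receptor subunits, rose by 0.9992 and 1.21 on the log2 scale. So members of the collagen, fibronectin and laminin receptor groups were among those that rose. The count was 3 leaving out 36 h replicate 2, 4 without the replicate block and 5 leaving out 36 h replicate 1 or 0 h replicate 1. ITGA2 lost its call without 36 h replicate 2 (limma adjusted p up to 0.06). ITGA3 and ITGB4 lost their calls without 36 h replicate 2, 36 h replicate 1 or 0 h replicate 1 (limma adjusted p up to 0.282). ITGA1 and ITGB3 lost their calls whichever of the 4 libraries was left out (limma adjusted p up to 0.123). ITGA1 and ITGA5 were not called without the replicate block (limma adjusted p up to 0.138). ITGB3, ITGA3 and ITGB4 were not called without the replicate block or on TPM as deposited (limma adjusted p up to 0.345).

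Of 44 matrix proteases and inhibitors 38 were tested, 12 rose and 2 fell. PLAU, urokinase, rose from 79.3 and 71.9 TPM at 0 h to 552 and 321 TPM at 36 h. PLAU had a log2 change of 2.46 (SE 0.29, adjusted p = 0.000472 by limma, left-out range 0.00277 to 0.0121). Its receptor PLAUR rose from 31.3 and 35.5 to 134 and 191 TPM. SERPINE2, a secreted protease inhibitor, rose from 74.7 and 29.8 TPM at 0 h to 855 and 641 TPM at 36 h. SERPINE2 had a log2 change of 3.94 (SE 0.27, adjusted p = 3e-05 by limma, left-out range 0.000195 to 0.00144). TIMP2, an inhibitor that also takes part in activating MMP2, rose from 73.1 and 47.8 to 538 and 288 TPM. TIMP3 rose from 0.726 and 0.0207 to 8.07 and 4.67 TPM. TIMP4 rose from 9.07 and 9.49 to 25.5 and 40.8 TPM. MMP1 and MMP10, which cleave collagen and other matrix proteins, rose from near 0, from 0 and 0.0622 to 2.28 and 14.0 TPM and from 0.228 and 0.187 to 6.36 and 14.7 TPM. MMP24, a membrane-type metalloproteinase, fell from 52.97 and 55.0 to 16.2 and 10.5 TPM. MMP7, matrilysin, fell from 47.2 and 276 TPM at 0 h to 4.24 and 79.0 TPM at 36 h. MMP7 had a log2 change of -2.50 (SE 0.52, adjusted p = 0.0138 by limma, call lost without 0 h replicate 1, 0 h replicate 2 and 36 h replicate 1, left-out range 0.044 to 0.135). Among the called genes chosen by the naming rule, MMP7 alone had 0 h and 36 h libraries that overlapped. Its 36 h replicate 2 was above 0 h replicate 1, while it was lower at 36 h within each pair. Proteases and their inhibitors were thus among the genes that rose at the same time. The members that fell numbered 1 without the replicate block or leaving out 36 h replicate 2, 36 h replicate 1, 0 h replicate 1 or 0 h replicate 2. TIMP3 and MMP24 lost their calls without 36 h replicate 2 (limma adjusted p up to 0.0717). MMP1 lost its call without 36 h replicate 2 or 0 h replicate 2 (limma adjusted p up to 0.151). TIMP3 and MMP7 were not called without the replicate block (limma adjusted p up to 0.571).

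Of 40 contractile and focal adhesion genes 37 were tested, 12 rose and 1 fell, and a count of 20 of the 37 had both 36 h libraries above both 0 h libraries (19.4% over all genes). Beside TAGLN, CNN1, calponin, rose from 1.25 and 0.663 to 5.39 and 13.4 TPM. PDLIM7, an actin-associated adaptor, rose from 52.0 and 27.2 to 247 and 139.6 TPM. TPM1, a tropomyosin that coats actin filaments, rose from 1479 and 799 TPM at 0 h to 4877 and 4744 TPM at 36 h. TPM1 had a log2 change of 2.14 (SE 0.44, adjusted p = 0.0124 by limma, call lost without 0 h replicate 1, 0 h replicate 2 and 36 h replicate 2, left-out range 0.0278 to 0.18). MYL9, a myosin light chain, rose from 4.13 and 0.456 to 13.5 and 6.55 TPM. CALD1, caldesmon, rose from 105 and 69.7 to 293 and 174 TPM. SMTN, smoothelin, rose from 16.4 and 13.1 to 50.4 and 29.7 TPM. The focal adhesion proteins TGFB1I1, VCL and FERMT2 rose by 1.56, 0.79 and 1.15 on the log2 scale. MYLK, myosin light chain kinase, fell from 39.99 and 76.5 TPM at 0 h to 11.3 and 12.5 TPM at 36 h. MYLK had a log2 change of -2.13 (SE 0.25, adjusted p = 0.000431 by limma, left-out range 0.00201 to 0.0134). The direction was therefore not shared by the kinase that switches myosin on. Under other settings the rises numbered 2 without the replicate block, 4 leaving out 36 h replicate 2 or 0 h replicate 2 and 6 leaving out 0 h replicate 1. CNN1 and MYL9 lost their calls without 36 h replicate 2 or 0 h replicate 2 (limma adjusted p up to 0.143). FERMT2 lost its call without 36 h replicate 2, 0 h replicate 1 or 0 h replicate 2 (limma adjusted p up to 0.179). CALD1, SMTN and VCL lost their calls whichever of the 4 libraries was left out (limma adjusted p up to 0.284). PDLIM7, TPM1, MYL9, CALD1 and TGFB1I1 were not called without the replicate block (limma adjusted p up to 0.31). SMTN, VCL and FERMT2 were not called without the replicate block or on TPM as deposited (limma adjusted p up to 0.306).

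The CArG box, bound by SRF, a regulator of contractile genes, was found before the start of SMTN, TGFB1I1 and MYLK, 3 of the 11 called contractile genes with a promoter entry. These are shown because genes on both sides of the list carry it. The stretches are chr22:31084932-31084981 (plus strand) for SMTN, chr16:31473134-31473183 (plus) for TGFB1I1 and chr3:123620613-123620662 (minus) for MYLK, with the box in capitals.
SMTN: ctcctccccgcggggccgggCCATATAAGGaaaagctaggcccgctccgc
TGFB1I1: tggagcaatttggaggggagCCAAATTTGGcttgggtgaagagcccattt
MYLK: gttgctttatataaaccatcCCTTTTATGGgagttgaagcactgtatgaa
Over those 11 genes 3 of 20 windows (15%) held the box, against 1.1% of all windows, 1.72% of those of genes called higher and 1.1% of those called lower. The table holds several windows for some genes, so windows of 1 gene are not independent.

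Of 9 caveola genes, all tested, PACSIN3, a membrane-bending protein, rose from 26.6 and 25.4 to 57.1 and 47.6 TPM. SDPR, cavin-2, fell from 17.4 and 24.3 to 1.28 and 2.62 TPM. Of 20 YAP and TEAD targets, all tested, 4 rose and 0 fell, with a median log2 change of 0.12 that was below 0 without 0 h replicate 1 or 36 h replicate 1. They were CTGF, NT5E, F3 and DLC1. F3, tissue factor, rose from 5.60 and 2.59 to 27.1 and 13.9 TPM. DLC1, a GTPase-activating protein, rose from 13.1 and 5.45 to 46.1 and 15.6 TPM. The YAP targets that rose numbered 1 without the replicate block. PACSIN3 lost its call whichever of the 4 libraries was left out (limma adjusted p up to 0.244). F3 and DLC1 were not called without the replicate block (limma adjusted p up to 0.318). PACSIN3 was not called without the replicate block, on TPM as deposited or with trimmed-mean scaling (limma adjusted p up to 0.16).

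Genes of secretory airway and gut epithelium fell without exception among those called: of 26 listed 16 were tested, 0 rose and 10 fell (62.5% of those tested, against 3.4% over all genes), with a median log2 change of -1.98. Beside AGR2, CEACAM6 and MUC5AC, SPDEF, a transcription factor of goblet cells, fell from 5.98 and 13.1 TPM at 0 h to 0.206 and 0.318 TPM at 36 h. SPDEF had a log2 change of -2.98 (SE 0.32, adjusted p = 0.000264 by limma, left-out range 0.00212 to 0.00737). SLPI, an antiprotease, fell from 14.5 and 48.0 to 1.98 and 3.13 TPM. AQP3, a water channel, fell from 4.42 and 17.2 to 0.905 and 0.734 TPM. FOXA2, a transcription factor of endodermal epithelia, fell from 20.2 and 18.5 to 7.12 and 3.55 TPM. MUC5B, the other gel-forming airway mucin, fell from 2.32 and 7.50 to 0.123 and 0.269 TPM. At 0 h replicate 2 was above replicate 1 in SPDEF, SLPI, AQP3 and MUC5B, and all 4 were below 4 TPM in both 36 h libraries. The number that fell was 3 leaving out 36 h replicate 2 or 0 h replicate 2 and 6 without the replicate block. AQP3 and MUC5B lost their calls without 36 h replicate 2 or 0 h replicate 2 (limma adjusted p up to 0.112). FOXA2 lost its call without 36 h replicate 2, 0 h replicate 1 or 0 h replicate 2 (limma adjusted p up to 0.156). SLPI lost its call whichever of the 4 libraries was left out (limma adjusted p up to 0.265). SLPI was not called without the replicate block (limma adjusted p up to 0.099).

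Of 19 fibrinogen and acute-phase genes 13 were tested, 0 rose and 6 fell. FGA, FGB and FGG, the 3 fibrinogen chains, fell from 15.3 and 58.4 to 0.514 and 3.45 TPM, from 11 and 44.4 to 3.95 and 5.36 TPM and from 11.02 and 52.7 to 1.73 and 5.67 TPM. CP, the copper-carrying ferroxidase ceruloplasmin, fell from 11.7 and 63.8 TPM at 0 h to 1.30 and 4.40 TPM at 36 h. CP had a log2 change of -3.03 (SE 0.59, adjusted p = 0.00892 by limma, call lost without 0 h replicate 2 and 36 h replicate 2, left-out range 0.0258 to 0.118). AMBP and APOH, plasma proteins of hepatic type, fell from 7.18 and 9.47 to 1.502 and 2.32 TPM and from 8.55 and 23.9 to 0.679 and 7.66 TPM. For all 6 genes 0 h replicate 2 was the higher 0 h library and 36 h replicate 2 the higher 36 h library. The number that fell was 1 without the replicate block and 3 leaving out 0 h replicate 2. Alveolar type II genes were mostly low: 8 of 12 were below 1 TPM in all 4 libraries, SFTPA1 and SFTPA2 were listed at 0, and of the 4 tested members 0 were called by limma and 0 were at an unadjusted p below 0.05. FGB lost its call without 36 h replicate 2 or 0 h replicate 2 (limma adjusted p up to 0.112). APOH lost its call without 36 h replicate 1, 0 h replicate 1 or 0 h replicate 2 (limma adjusted p up to 0.107). FGA, FGB, FGG, CP and APOH were not called without the replicate block (limma adjusted p up to 0.377).

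NRF2 binds antioxidant response elements (AREs) with small MAF proteins and switches on genes of glutathione synthesis, thioredoxin reduction, NADPH supply, detoxification and iron storage. The letters TGACNNNGC, searched on both strands, lay before a start in CYP4F11, EPHX1, GCLM, GPX2, PGD and TXNRD1. They are printed for 5 of these, which stand for different branches of the response and all fell. The stretches are chr1:93909436-93909484 (minus strand) for GCLM, chr14:64942839-64942887 (minus) for GPX2, chr1:10398843-10398891 (plus) for PGD, chr12:104286910-104286958 (plus) for TXNRD1 and chr19:15934995-15935043 (minus) for CYP4F11, with the element in capitals.
GCLM: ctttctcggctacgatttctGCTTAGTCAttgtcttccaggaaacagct
GPX2: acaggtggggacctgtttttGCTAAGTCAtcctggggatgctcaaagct
PGD: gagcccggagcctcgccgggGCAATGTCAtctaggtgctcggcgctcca
TXNRD1: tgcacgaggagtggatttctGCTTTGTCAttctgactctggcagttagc
CYP4F11: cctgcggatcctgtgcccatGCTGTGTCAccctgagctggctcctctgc
Of the 22 called NRF2 targets with a promoter entry, 7 held the letters in 8 of 28 windows (28.6%), against 14.3% of all windows, 12.5% of those of genes called higher and 15.2% of those called lower. The letters can overlap those of the AP-1 element, TGANTCA. AREs also lie farther from starts than these windows reach.

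All 41 listed NRF2 targets were tested, and 30 fell (73.2% of them, against 3.4% over all genes) while 0 rose, with a median log2 change of -1.48 and a range from -4.96 to 0.37. In 37 of the 41, both 36 h libraries were below both 0 h libraries, against 27.7% over all genes. Their summed level went from 37896 and 41041 TPM at 0 h to 12937 and 14763 TPM at 36 h. For glutathione, GCLC and GCLM, the subunits of the rate-limiting ligase, fell from 187 and 188 to 42.0 and 49.3 TPM and from 99.2 and 99.6 to 39.8 and 29.5 TPM. GSR, glutathione reductase, fell from 248 and 327 to 108 and 132 TPM. For thioredoxin, TXNRD1, its reductase, fell from 1364 and 1435 TPM at 0 h to 433 and 350.4 TPM at 36 h. TXNRD1 had a log2 change of -1.84 (SE 0.19, adjusted p = 0.000249 by limma, left-out range 0.000899 to 0.00673). TXN fell from 942 and 1118 to 399 and 594 TPM. SRXN1, sulfiredoxin, fell from 172 and 215 to 79.7 and 58.7 TPM. For NADPH, the pentose phosphate enzymes PGD and TKT fell from 1068 and 1397 to 379 and 503 TPM and from 1487 and 1749.8 to 852 and 996 TPM. Both kept 36 h levels of over 100 TPM in each library. NQO1, the quinone reductase often used as a marker of NRF2 activity, fell from 2483 and 2372 TPM at 0 h to 985 and 1013 TPM at 36 h. NQO1 had a log2 change of -1.28 (SE 0.22, adjusted p = 0.00474 by limma, call lost without 0 h replicate 1 and 36 h replicate 2, left-out range 0.0204 to 0.091). AKR1B10, an aldo-keto reductase, fell from 2988 and 3343 TPM at 0 h to 330.4 and 524 TPM at 36 h. AKR1B10 had a log2 change of -2.92 (SE 0.40, adjusted p = 0.0011 by limma, left-out range 0.00914 to 0.0228). Its relatives AKR1C1, AKR1C2 and AKR1C3 fell from 557 and 729 to 54.5 and 97.9 TPM, from 3134 and 3377 to 259 and 681 TPM and from 1943 and 2005 to 339.9 and 656 TPM. Their sequences are nearly identical, so the split of reads among them is uncertain. For iron storage, the ferritin chains FTL and FTH1 fell from 10597 and 11677 to 3298 and 3867 TPM and from 3588 and 2297 to 1532 and 734 TPM. Members that did not pass the test included HMOX1 (-0.09), PRDX1 (0.01), SLC7A11 (-0.46) and ME1 (-0.20), on the log2 scale. HMOX1 encodes heme oxygenase-1 and SLC7A11 the cystine importer. The number that fell was 14 leaving out 36 h replicate 2, 16 without the replicate block and 19 leaving out 0 h replicate 1. SRXN1 lost its call without 36 h replicate 2 (limma adjusted p up to 0.0695). AKR1C1, AKR1C2 and FTL lost their calls without 36 h replicate 2 or 0 h replicate 1 (limma adjusted p up to 0.0895). FTH1 lost its call without 36 h replicate 2 or 0 h replicate 2 (limma adjusted p up to 0.0988). TXN and AKR1C3 lost their calls without 36 h replicate 2, 36 h replicate 1 or 0 h replicate 1 (limma adjusted p up to 0.143). TKT lost its call whichever of the 4 libraries was left out (limma adjusted p up to 0.318). AKR1C1, AKR1C2, AKR1C3 and FTH1 were not called without the replicate block (limma adjusted p up to 0.153). NQO1 was not called with trimmed-mean scaling (limma adjusted p up to 0.0616). TXN, TKT and FTL were not called without the replicate block or with trimmed-mean scaling (limma adjusted p up to 0.227).

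**Figure D4:**
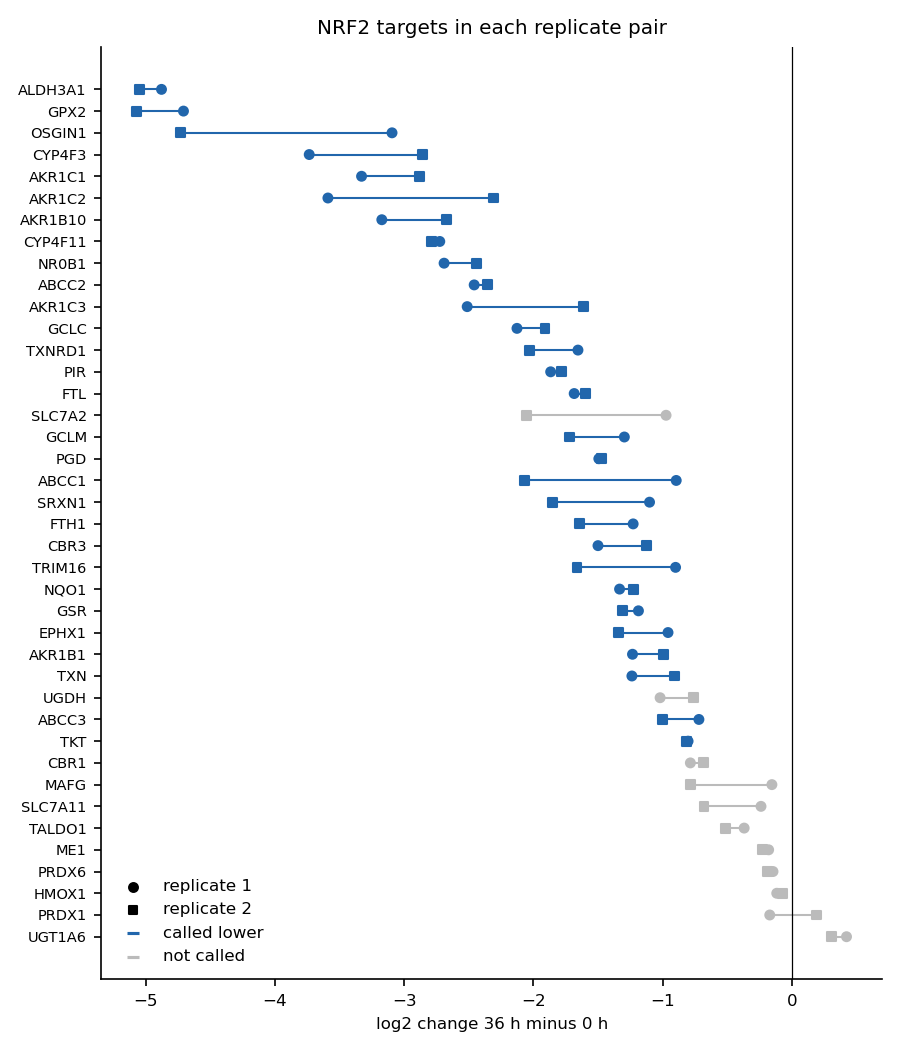
Log2 change from 0 h to 36 h of 40 of the 41 NRF2 targets in the replicate 1 pair (circles) and replicate 2 pair (squares), with a line joining the pairs, the 29 of them called lower in blue and the others in grey, ordered by mean change. ALDH3A1 and GPX2 lie at the far left, and HMOX1, PRDX1 and UGT1A6 near or above 0.

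Among other detoxifying enzymes and transporters, most calls were also falls. Of 34 listed aldehyde dehydrogenases and detoxifying enzymes 29 were tested, 0 rose and 8 fell. CYP1B1, a cytochrome P450 induced by aryl hydrocarbons, fell from 23.6 and 55.1 to 4.44 and 8.49 TPM. ALDH3B1 fell from 110.1 and 191 to 37.3 and 41.7 TPM. ALDH3A2, the fatty aldehyde dehydrogenase, fell from 194 and 256 to 81.8 and 75.2 TPM. ALDH1A1, an abundant enzyme of this line, was at 8903 and 8071 TPM at 0 h, then 7827 and 11422 TPM at 36 h and was not called (limma adjusted p = 0.857). Of 29 drug efflux and solute transporters 27 were tested, 1 rose and 9 fell. The median log2 change of these transporters was -0.16, beside -0.07 over all genes, and 12 of the 27 were above 0. ABCC2, ABCC1 and ABCC3, exporters of glutathione conjugates that are also NRF2 targets, fell from 202 and 264 to 35.9 and 50.9 TPM, from 89.5 and 95.3 to 47.7 and 21.9 TPM and from 232 and 368 to 141 and 183 TPM. ABCG2, a broad drug exporter, fell from 27.1 and 47.1 to 4.61 and 7.43 TPM. SLC2A3, the glucose transporter GLUT3, rose from 40.4 and 48.7 TPM at 0 h to 156 and 209 TPM at 36 h. SLC2A3 had a log2 change of 1.998 (SE 0.25, adjusted p = 0.000635 by limma, left-out range 0.00667 to 0.0143). The transporters that fell numbered 4 without the replicate block or leaving out 36 h replicate 2 and 5 leaving out 0 h replicate 2, and the detoxifying enzymes 4 leaving out 0 h replicate 2 and 5 without the replicate block. ABCC1 lost its call without 36 h replicate 2 or 0 h replicate 2 (limma adjusted p up to 0.159). ABCC2 lost its call without 36 h replicate 2, 0 h replicate 1 or 0 h replicate 2 (limma adjusted p up to 0.151). ABCC3 lost its call without 36 h replicate 2, 36 h replicate 1 or 0 h replicate 2 (limma adjusted p up to 0.203). CYP1B1, ALDH3B1, ABCC2, ABCC1 and ABCG2 were not called without the replicate block (limma adjusted p up to 0.116). ABCC3 was not called without the replicate block or with trimmed-mean scaling (limma adjusted p up to 0.144).

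Genes of small secreted proteins in clusters on chromosome 19 had a large share of rises: of 12 IGFL and chorionic gonadotropin genes 11 were tested, 9 rose (81.8%, against 3.75% over all genes) and 0 fell. IGFL2, IGFL3 and IGFL4 rose from 1.87 and 1.20 to 41.8 and 38.0 TPM, from 1.29 and 0.187 to 37.2 and 37.8 TPM and from 3.09 and 1.97 to 9.59 and 11.9 TPM. CGB8 and CGB5, copies of the chorionic gonadotropin beta chain, rose from 1.72 and 0.912 to 55.5 and 54.3 TPM and from 0.581 and 0.249 to 9.90 and 18.4 TPM. All 5 were at or below 4 TPM at 0 h. Genes this low can hardly be called lower, and IGFL3, CGB8 and CGB5 passed the filter only with libraries taken after 0 h. The share that rose and the 0 that fell are therefore partly set by the filter. The CGB copies are nearly identical and share reads, so their single values are uncertain. The rises counted 5 leaving out 36 h replicate 2. Of 21 genes of the insulin-like growth factor axis, all tested, 4 rose and 1 fell. IGFBP5, a binding protein, rose from 0.394 and 0.249 TPM at 0 h to 17.4 and 12.2 TPM at 36 h. IGFBP5 had a log2 change of 3.56 (SE 0.34, adjusted p = 0.000154 by limma, left-out range 0.00151 to 0.00594). STC1, stanniocalcin, an inhibitor of the protease that frees IGFs, rose from 5.27 and 2.13 to 28.1 and 17.0 TPM. HTRA1, a secreted protease, rose from 53.6 and 52.98 to 133 and 193 TPM. IGFBP6 fell from 92.5 and 88.2 to 19.4 and 25.9 TPM. Falls on this list numbered 2 on TPM as deposited or with trimmed-mean scaling. IGFL4 lost its call without 36 h replicate 2 (limma adjusted p up to 0.0724). STC1 was not called without the replicate block (limma adjusted p up to 0.0512).

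Growth factor ligands of the EGF family were divided: of 24 listed genes 23 were tested, 3 rose and 6 fell. NRG1, neuregulin-1, a ligand of ERBB3 and ERBB4, rose from 221 and 120.1 to 524 and 322 TPM. HBEGF rose from 3.01 and 1.20 to 11.2 and 8.22 TPM. AREG, a ligand of EGFR, fell from 46.2 and 48.3 TPM at 0 h to 2.65 and 6.92 TPM at 36 h. AREG had a log2 change of -3.16 (SE 0.63, adjusted p = 0.0109 by limma, call lost without 0 h replicate 1, 0 h replicate 2, 36 h replicate 1 and 36 h replicate 2, left-out range 0.0585 to 0.103). EREG, another, fell from 44.9 and 32.9 TPM at 0 h to 5.53 and 2.84 TPM at 36 h. EREG had a log2 change of -2.98 (SE 0.44, adjusted p = 0.00189 by limma, left-out range 0.00597 to 0.0432). The feedback genes also split. SPRY4 rose from 3.82 and 4.31 to 18.5 and 20.9 TPM. DUSP4, a nuclear MAP kinase phosphatase, fell from 100.1 and 113 to 41.7 and 29.4 TPM. Of 30 chemokines and NF-kB linked genes 23 were tested, 2 rose and 7 fell. CXCL5 and CXCL1, neutrophil chemoattractants, fell from 93.2 and 112 to 16.01 and 8.22 TPM and from 45.8 and 36.7 to 12.8 and 4.65 TPM. TNFAIP2, an NF-kB target, fell from 199 and 242 to 50.6 and 37.1 TPM. CCL2, a monocyte chemoattractant, and IL32 rose from 15.2 and 19.5 to 39.5 and 68.7 TPM and from 8.39 and 2.92 to 47.4 and 24.2 TPM. Chemokines that fell numbered 1 leaving out 36 h replicate 2, 2 leaving out 0 h replicate 2, 3 leaving out 0 h replicate 1 and 4 without the replicate block. Chemokines that rose numbered 0 without the replicate block and 1 on TPM as deposited or leaving out 36 h replicate 2, 0 h replicate 1 or 0 h replicate 2. EGF family members that fell numbered 1 leaving out 36 h replicate 2, 2 leaving out 0 h replicate 1 or 0 h replicate 2 and 3 without the replicate block. EGF family members that rose numbered 0 leaving out 36 h replicate 2 or 0 h replicate 1, 1 without the replicate block or leaving out 0 h replicate 2 and 5 with trimmed-mean scaling. DUSP4 lost its call without 36 h replicate 2 (limma adjusted p up to 0.0508). SPRY4 lost its call without 36 h replicate 2 or 0 h replicate 1 (limma adjusted p up to 0.0794). HBEGF, CXCL5, CXCL1 and CCL2 lost their calls without 36 h replicate 2, 0 h replicate 1 or 0 h replicate 2 (limma adjusted p up to 0.379). NRG1 lost its call whichever of the 4 libraries was left out (limma adjusted p up to 0.285). HBEGF, CXCL1 and IL32 were not called without the replicate block (limma adjusted p up to 0.169). NRG1 and CCL2 were not called without the replicate block or on TPM as deposited (limma adjusted p up to 0.163).

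Of 16 IL-6 family genes 14 were tested, 2 rose and 1 fell. IL11, a cytokine that TGF-beta induces, rose from 53.7 and 22.6 TPM at 0 h to 773 and 574 TPM at 36 h. IL11 had a log2 change of 4.21 (SE 0.29, adjusted p = 3.02e-05 by limma, left-out range 0.00031 to 0.00144). IL6ST, the shared receptor gp130, fell from 129 and 152 to 96.0 and 69.7 TPM. Of 33 Wnt genes 29 were tested, 2 rose and 2 fell (6.9% each way, against 3.75% and 3.4% over all genes). WNT7A rose beside WNT5B, from 0.0830 and 0 to 7.61 and 4.43 TPM. RNF43, a feedback ubiquitin ligase, and DKK1, a secreted antagonist, fell from 8.72 and 23.1 to 1.15 and 1.88 TPM and from 147 and 345 to 19.96 and 63.5 TPM. Wnt genes that rose numbered 1 without the replicate block or leaving out 36 h replicate 2 or 0 h replicate 1. Wnt genes that fell numbered 0 without the replicate block and 1 leaving out 36 h replicate 2. Of 22 Notch genes 19 were tested and 4 rose. The ligand JAG1 rose from 63.0 and 27.0 to 300.01 and 122 TPM. The target HES1 rose from 14.8 and 10.6 to 63.1 and 29.3 TPM. Of 30 axon guidance genes 28 were tested, 4 rose and 2 fell. SEMA3C, a secreted semaphorin, rose from 196 and 159 TPM at 0 h to 682 and 751 TPM at 36 h. SEMA3C had a log2 change of 2.01 (SE 0.24, adjusted p = 0.000508 by limma, left-out range 0.00325 to 0.0157). The receptor EPHB2 rose from 51.3 and 23.2 to 169 and 91.2 TPM. NTN4, a netrin, fell from 53.01 and 81.5 to 23.5 and 17.4 TPM. Notch genes that rose numbered 1 without the replicate block. Axon guidance genes that rose numbered 1 without the replicate block and 2 on TPM as deposited or leaving out 36 h replicate 2, 0 h replicate 1 or 0 h replicate 2. Those that fell numbered 0 leaving out 36 h replicate 2 or 0 h replicate 2 and 1 without the replicate block or leaving out 0 h replicate 1. RNF43 lost its call without 36 h replicate 2 (limma adjusted p up to 0.0634). WNT7A lost its call without 36 h replicate 2 or 0 h replicate 1 (limma adjusted p up to 0.114). NTN4 lost its call without 36 h replicate 2 or 0 h replicate 2 (limma adjusted p up to 0.102). IL6ST lost its call without 36 h replicate 2, 0 h replicate 1 or 0 h replicate 2 (limma adjusted p up to 0.338). WNT7A, RNF43, DKK1, JAG1, HES1 and EPHB2 were not called without the replicate block (limma adjusted p up to 0.202). IL6ST was not called without the replicate block or on TPM as deposited (limma adjusted p up to 0.0919).

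Of 25 immediate early and AP-1 genes 23 were tested, 6 rose and 0 fell. IER3 rose from 117 and 118 TPM at 0 h to 471 and 635 TPM at 36 h. IER3 had a log2 change of 2.21 (SE 0.22, adjusted p = 0.000169 by limma, left-out range 0.00113 to 0.00637). ZFP36, a protein that destabilises cytokine mRNA, rose from 13.5 and 11.6 to 56.7 and 39.8 TPM. DUSP1, a MAP kinase phosphatase, was called although its libraries overlapped (239 and 81.4 TPM at 0 h, then 553 and 224 TPM at 36 h). IER2 was too (45.1 and 23.9 TPM at 0 h, then 109 and 36.3 TPM at 36 h). MYC was at 96.6 and 71.2 TPM at 0 h, then 148 and 58.8 TPM at 36 h, with the 36 h libraries above and below those of 0 h. The number that rose was 2 leaving out 0 h replicate 2 and 3 without the replicate block or leaving out 36 h replicate 2. DUSP1 lost its call without 0 h replicate 2 (limma adjusted p up to 0.0865). IER2 lost its call whichever of the 4 libraries was left out (limma adjusted p up to 0.217). DUSP1 was not called without the replicate block (limma adjusted p up to 0.363). IER2 was not called without the replicate block or on TPM as deposited (limma adjusted p up to 0.588).

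Cell cycle genes lay below 0 as groups, with few calls. All 41 replication and S-phase genes were tested, 2 fell (4.88%, against 3.4% over all genes) and 0 rose. The median log2 change was -0.79, with -0.52 in the replicate 1 pair and -1.04 in the replicate 2 pair. Both pairs were below 0 in 39 of the 41, and in 35.5% of all tested genes. The falls numbered 0 without the replicate block, on TPM as deposited or leaving out 36 h replicate 2, 0 h replicate 1 or 0 h replicate 2 and 4 leaving out 36 h replicate 1. PCNA, the sliding clamp of DNA polymerase, fell from 554 and 686 TPM at 0 h to 308 and 348 TPM at 36 h. PCNA had a log2 change of -0.91 (SE 0.25, adjusted p = 0.0448 by limma, call lost without 0 h replicate 1, 0 h replicate 2, 36 h replicate 1 and 36 h replicate 2, left-out range 0.0792 to 0.381). CDC7, the kinase that fires origins, fell from 14.5 and 18.5 to 7.16 and 7.12 TPM. All 36 mitosis and G2/M genes were tested and 0 were called by limma, with 3 at an unadjusted p below 0.05. Their median was -0.68, with -0.31 in the replicate 1 pair and -1.05 in the replicate 2 pair, and both pairs were below 0 in 34. With trimmed-mean scaling 1 of them was called lower. MKI67, the proliferation antigen Ki-67, was at 105 and 123 TPM at 0 h, then 101 and 38.2 TPM at 36 h, so only 36 h replicate 2 was well below the 0 h libraries. The size of these medians thus differed between pairs, with the larger one in the pair that holds 36 h replicate 2. Of 34 G1 regulators and p53 targets 32 were tested, 2 rose (6.25%, against 3.75% over all genes) and 0 fell. TP53I3 rose from 156 and 106 to 356 and 389 TPM. BTG1, an antiproliferative gene, rose from 92.8 and 78.0 to 179 and 139 TPM. These rises numbered 1 without the replicate block, on TPM as deposited or leaving out 36 h replicate 2 or 0 h replicate 1. CDKN1A, the inhibitor p21, was at 106 and 58.6 TPM at 0 h, then 149 and 138 TPM at 36 h, without overlap, and was not called (limma adjusted p = 0.136). Of 20 histone genes 19 were tested and 0 were called by limma, with 1 above and 3 below 0 at an unadjusted p below 0.05. The count lower was 1 on TPM as deposited or without 36 h replicate 1. Off the list, and chosen after their values were seen, the histone genes HIST1H2BI, HIST1H2BF and HIST3H2BA fell from 368 and 509 to 119 and 130.3 TPM, from 2.41 and 3.92 to 0.823 and 0 TPM and from 6.99 and 7.86 to 1.67 and 2.47 TPM. BTG1 and HIST3H2BA lost their calls without 36 h replicate 2 or 0 h replicate 1 (limma adjusted p up to 0.159). HIST1H2BF lost its call without 36 h replicate 2 or 0 h replicate 2 (limma adjusted p up to 0.299). HIST1H2BI lost its call without 36 h replicate 2, 0 h replicate 1 or 0 h replicate 2 (limma adjusted p up to 0.295). CDC7 lost its call whichever of the 4 libraries was left out (limma adjusted p up to 0.387). HIST1H2BI and HIST3H2BA were not called without the replicate block (limma adjusted p up to 0.161). CDC7 and BTG1 were not called without the replicate block or on TPM as deposited (limma adjusted p up to 0.133). PCNA was not called without the replicate block, on TPM as deposited or with trimmed-mean scaling (limma adjusted p up to 0.225).

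In metabolism, VEGFA, the endothelial growth factor on the glycolysis and hypoxia list, rose from 23.4 and 26.9 TPM at 0 h to 136 and 122 TPM at 36 h. VEGFA had a log2 change of 2.31 (SE 0.53, adjusted p = 0.0207 by limma, call lost without 0 h replicate 1 and 36 h replicate 2, left-out range 0.0371 to 0.248). By contrast, 6 of the 32 tested members fell. ADM, adrenomedullin, fell from 76.3 and 96.7 TPM at 0 h to 14.8 and 12.2 TPM at 36 h. ADM had a log2 change of -2.59 (SE 0.38, adjusted p = 0.00184 by limma, left-out range 0.00272 to 0.0409). BNIP3, a mitophagy receptor, fell from 81.2 and 68.8 to 35.2 and 25.1 TPM. The glycolytic enzymes GPI and LDHB fell from 691 and 691 to 423 and 281 TPM and from 1365 and 1277 to 741 and 777 TPM. VEGFA and ADM, both known hypoxia targets, thus went opposite ways. Glycolysis and hypoxia members that fell numbered 1 leaving out 36 h replicate 2, 2 leaving out 0 h replicate 1 or 0 h replicate 2 and 3 without the replicate block. Of 25 sterol genes, all tested, 1 rose (4%, against 3.75% over all genes) and 0 fell. The call was STARD4, which went from 38.2 and 28.3 to 56.7 and 85.3 TPM. STARD4 was also the only member with a log2 change above 0. The list's median was -0.35, with -0.91 in the replicate 1 pair and 0.05 in the replicate 2 pair. Of 23 fatty acid and lipid genes 22 were tested, 2 rose and 2 fell (9.09% each way, against 3.75% and 3.4% over all genes). ACSL4 and ACLY rose from 70.6 and 41.9 to 122 and 111 TPM and from 575 and 447 to 827 and 792 TPM. ELOVL6, a fatty acid elongase, and CPT1A, the carnitine shuttle enzyme, fell from 36.7 and 29.8 to 13.6 and 10.2 TPM and from 38.3 and 38.2 to 24.0 and 18.6 TPM. Lipid genes that rose numbered 0 without the replicate block or leaving out 36 h replicate 2 or 0 h replicate 2 and 1 on TPM as deposited, with trimmed-mean scaling or leaving out 36 h replicate 1 or 0 h replicate 1. Those that fell numbered 0 leaving out 36 h replicate 2, 0 h replicate 1 or 0 h replicate 2 and 1 without the replicate block, on TPM as deposited or with trimmed-mean scaling. BNIP3 lost its call without 36 h replicate 2 or 0 h replicate 1 (limma adjusted p up to 0.0935). ACSL4 lost its call without 36 h replicate 2 or 0 h replicate 2 (limma adjusted p up to 0.159). GPI, STARD4, ELOVL6 and CPT1A lost their calls without 36 h replicate 2, 0 h replicate 1 or 0 h replicate 2 (limma adjusted p up to 0.382). LDHB and ACLY lost their calls whichever of the 4 libraries was left out (limma adjusted p up to 0.35). VEGFA and ACSL4 were not called without the replicate block (limma adjusted p up to 0.144). GPI was not called with trimmed-mean scaling (limma adjusted p up to 0.0515). LDHB was not called without the replicate block or with trimmed-mean scaling (limma adjusted p up to 0.176). STARD4 was not called without the replicate block or on TPM as deposited (limma adjusted p up to 0.0909). ACLY and CPT1A were not called without the replicate block, on TPM as deposited or with trimmed-mean scaling (limma adjusted p up to 0.227).

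In stress and immune lists, HSPB1, the small heat shock protein HSP27, rose from 312 and 223 TPM at 0 h to 854 and 1389.5 TPM at 36 h. HSPB1 had a log2 change of 2.04 (SE 0.34, adjusted p = 0.00337 by limma, call lost without 0 h replicate 2 and 36 h replicate 2, left-out range 0.00694 to 0.0702). HSP90AA1 and HSPD1 fell from 917 and 678 to 457 and 291 TPM and from 731 and 609 to 469.8 and 415 TPM. Of 21 tested heat shock genes 1 rose and 2 fell (4.76% and 9.52%, against 3.75% and 3.4% over all genes). Heat shock genes that fell numbered 0 without the replicate block or leaving out 36 h replicate 2, 0 h replicate 1 or 0 h replicate 2, 1 with trimmed-mean scaling or leaving out 36 h replicate 1 and 4 on TPM as deposited. Of 31 tested unfolded protein and ATF4 response genes, 0 were called by limma, and 4 were above 0 at an unadjusted p below 0.05. Of 34 interferon-stimulated and antigen presentation genes 33 were tested, 3 rose and 7 fell. PSMB9, an immunoproteasome subunit, fell from 18.3 and 21.7 to 4.92 and 6.14 TPM. HLA-C rose from 40.6 and 34.8 to 64.2 and 64.6 TPM. Interferon genes that fell numbered 1 without the replicate block or leaving out 36 h replicate 2, 2 leaving out 0 h replicate 2, 3 leaving out 0 h replicate 1 and 4 leaving out 36 h replicate 1. Those that rose numbered 0 on TPM as deposited or leaving out 36 h replicate 2 or 0 h replicate 1 and 1 without the replicate block or leaving out 0 h replicate 2. Of 27 cell death regulators, all tested, 2 rose and 2 fell (7.41% each way, against 3.75% and 3.4% over all genes). MCL1, an antiapoptotic BCL2 relative, and PMAIP1, the proapoptotic NOXA, rose from 160.4 and 103 to 391 and 259.6 TPM and from 17.5 and 14.2 to 42.2 and 30.1 TPM. DAPK1 and BIRC3 fell from 117 and 187 to 35.9 and 41.8 TPM and from 16.7 and 19.3 to 7.82 and 3.15 TPM. Cell death genes that rose numbered 0 without the replicate block or leaving out 36 h replicate 2 and 1 on TPM as deposited or leaving out 36 h replicate 1, 0 h replicate 1 or 0 h replicate 2, and those that fell 0 without the replicate block and 1 on TPM as deposited or leaving out 36 h replicate 2, 0 h replicate 1 or 0 h replicate 2. Of the 39 ribosomal protein, 21 ribosome biogenesis, 33 respiratory chain and 13 mitochondrially encoded genes that were listed and tested, 0 were called by limma, and 0, 7, 8 and 1 were below 0 at an unadjusted p below 0.05. Off these lists, and chosen after their values were seen, RPL28, a ribosomal protein gene, rose from 968 and 755 to 1849 and 1463 TPM. RPL39L, a relative of another, fell from 51.5 and 74.1 to 35.0 and 33.1 TPM. ATP5G1 and NDUFA7, which encode subunits of ATP synthase and complex I, fell from 192 and 215 to 87.6 and 133 TPM and from 67.1 and 91.6 to 42.7 and 51.3 TPM. The 13 mitochondrial transcripts summed to 18878 and 17689.5 TPM at 0 h, then 18693 and 12101.5 TPM at 36 h, lowest in 36 h replicate 2. PSMB9 and MCL1 lost their calls without 36 h replicate 2 (limma adjusted p up to 0.0701). HSP90AA1, BIRC3 and RPL39L lost their calls without 36 h replicate 2, 0 h replicate 1 or 0 h replicate 2 (limma adjusted p up to 0.401). HSPD1, HLA-C, PMAIP1, RPL28, ATP5G1 and NDUFA7 lost their calls whichever of the 4 libraries was left out (limma adjusted p up to 0.399). HSP90AA1, PSMB9, MCL1 and DAPK1 were not called without the replicate block (limma adjusted p up to 0.239). HSPD1, RPL28, RPL39L and ATP5G1 were not called without the replicate block or with trimmed-mean scaling (limma adjusted p up to 0.324). PMAIP1 and BIRC3 were not called without the replicate block or on TPM as deposited (limma adjusted p up to 0.203). HLA-C and NDUFA7 were not called without the replicate block, on TPM as deposited or with trimmed-mean scaling (limma adjusted p up to 0.378).

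Among 28 named long non-coding RNAs 23 were tested, 4 rose and 2 fell. MEG3, an imprinted transcript, rose from 9.67 and 9.37 TPM at 0 h to 102 and 119 TPM at 36 h. MEG3 had a log2 change of 3.40 (SE 0.37, adjusted p = 0.000314 by limma, left-out range 0.0024 to 0.0107). MIR31HG, a microRNA host transcript, rose from 7.74 and 13.1 to 32.2 and 81.9 TPM. MIR22HG rose from 31.1 and 17.9 to 68.8 and 66.3 TPM. H19, another imprinted transcript, fell from 3.59 and 4.85 to 0.967 and 0.954 TPM. Named non-coding RNAs that rose numbered 2 leaving out 36 h replicate 2 or 0 h replicate 2. Those that fell numbered 0 leaving out 36 h replicate 2, 0 h replicate 1 or 0 h replicate 2 and 1 without the replicate block or on TPM as deposited. Of all tested genes classed as protein-coding, 677 of 13589 rose (4.98%) and 595 fell (4.38%). Of those classed as long non-coding or antisense, 72 of 3682 rose (1.96%) and 77 fell (2.09%). MIR22HG lost its call without 36 h replicate 2 or 0 h replicate 2 (limma adjusted p up to 0.184). H19 lost its call without 36 h replicate 2, 0 h replicate 1 or 0 h replicate 2 (limma adjusted p up to 0.128). MIR22HG was not called without the replicate block (limma adjusted p up to 0.0603).

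The line's identity and other cell types were checked by markers. Of 11 A549 markers, all tested, 0 rose and 8 fell. Those that fell include AKR1B10, AKR1C1, AKR1C2, ALDH3A1 and NQO1, which are also counted among the NRF2 targets. The summed level of the 11 went from 26580.2 and 29469 TPM at 0 h to 14213 and 19375 TPM at 36 h. Most of this sum came from ALDH1A1, KRT8 and KRT18, which were abundant at both times. At 36 h CDH1, EPCAM and KRT19 were far below these, so not every epithelial marker was abundant. The A549 markers that fell numbered 3 leaving out 36 h replicate 2 or 0 h replicate 1 and 4 without the replicate block. Endothelial markers summed to 41.8 and 44.6 TPM at 0 h, then 50.9 and 53 TPM at 36 h, mostly from EGFL7. Of the 9 listed, 8 had values, and 6 of these were below 1 TPM in all 4 libraries. ESAM, an adhesion protein of that list, was its only call and rose from 1.14 and 0.767 TPM at 0 h to 13.0 and 17.6 TPM at 36 h. ESAM had a log2 change of 3.05 (SE 0.43, adjusted p = 0.00142 by limma, left-out range 0.00633 to 0.0347). Leukocyte markers summed to 13.8 and 25.8 TPM at 0 h, then 17.2 and 27.1 TPM at 36 h, with TYROBP listed at 0 in all 4 libraries and CD14 called lower (2.18 and 3.77 TPM at 0 h, then 0.144 and 0 TPM at 36 h). Erythroid markers summed to at most 1.74 TPM in any library. CD14 lost its call without 36 h replicate 2 (limma adjusted p up to 0.0512).

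No gene was called between 36 h and its neighbouring times. With the same model, 0 genes (0%) were called between 36 h and 24 h (614 at an unadjusted p below 0.05, smallest limma adjusted p = 0.0556) and 0 (0%) between 48 h and 36 h (2405, smallest 0.297). These comparisons share the 36 h libraries with the one above, and the called genes were selected on those libraries. For genes that rose, such selection by itself pushes the change into 36 h up and the change after it down. For genes that fell it does the reverse. The medians of called genes below therefore cannot show a peak or a trough at 36 h. Among the genes that rose by 36 h, the median log2 change was 0.17 from 24 h to 36 h and -0.33 from 36 h to 48 h, beside 0 and -0.15 over all genes. Among those that fell, it was -0.22 and 0.02. ALDH3A1 was at 89.6 and 251 TPM at 24 h, 25.4 and 49.6 TPM at 36 h, then 15.7 and 47.5 TPM at 48 h. COL1A1 was at 197 and 66.6 TPM at 24 h, 209 and 50.7 TPM at 36 h, then 46.0 and 15.8 TPM at 48 h. CDH1 was at 2.26 and 6.31 TPM at 24 h, then 2.03 and 8.48 TPM at 48 h, near its 36 h values of 2.10 and 6.97 TPM. IGFL1 was at 211 and 715 TPM at 24 h, then 656 and 1481 TPM at 48 h. So in both replicates ALDH3A1 was lower at 36 h than at 24 h and IGFL1 was higher, while neither difference was called.

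**Figure D5:**
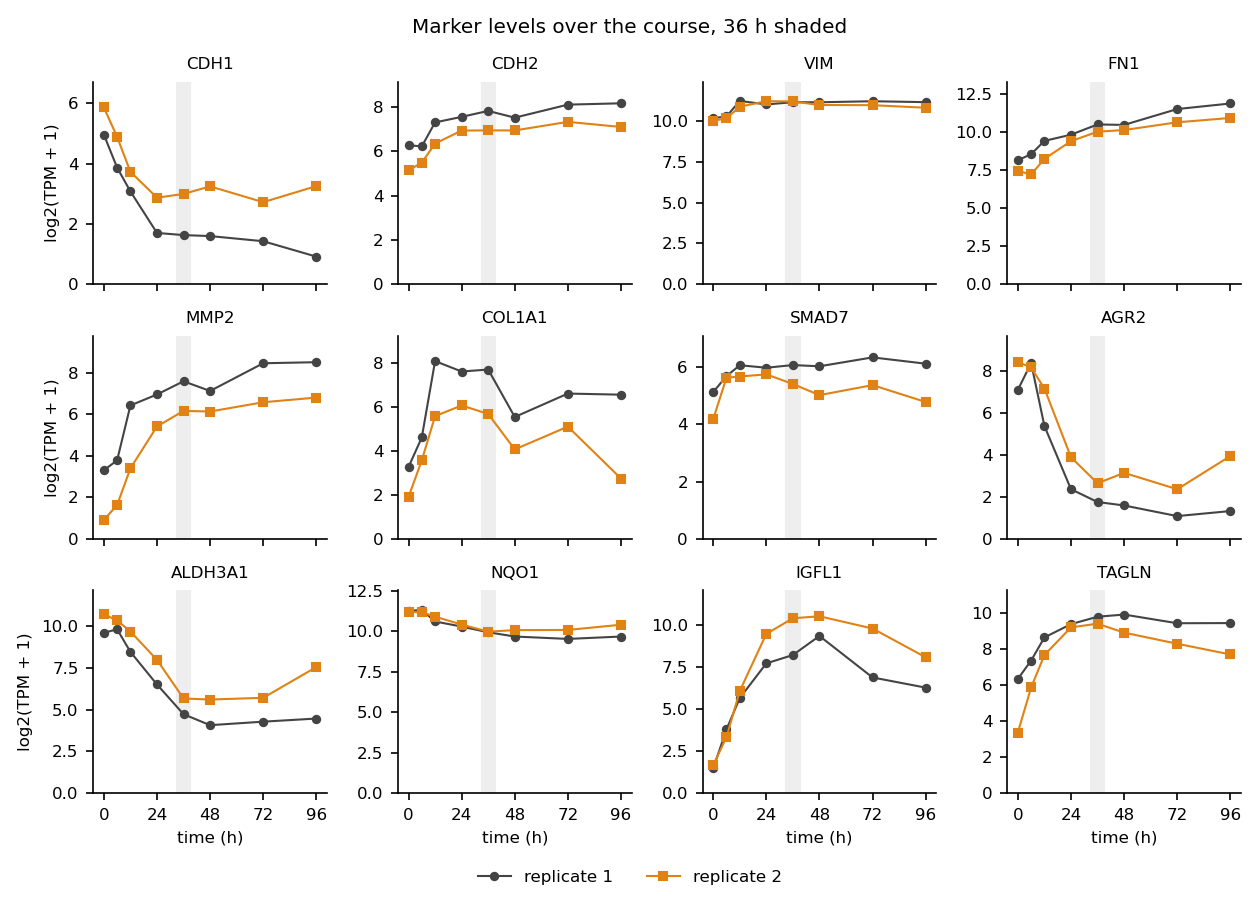
Level as log2(TPM + 1) against time in hours for 12 markers in replicate 1 (black circles) and replicate 2 (orange squares), with 36 h shaded. CDH1, AGR2 and ALDH3A1 have dropped by 24 or 36 h, IGFL1 and FN1 are well above their 0 h level, and the 24, 36 and 48 h points of most markers lie close together.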

How the data were processed

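Per the labels' protocols, RNA of A549 cells was isolated in Trizol and made into libraries by an Illumina TruSeq RNA kit. The authors deposited gene levels as TPM, in 1 table per replicate number. The submitters' processing notes name Bowtie and RSEM but no version. A genome build or annotation release is not given in the sources used here. All columns of values were mapped by time and replicate number, with 0 unmapped. The tables were joined by Ensembl gene identifier. RN7SL1, RN7SL2, RN7SL3, RN7SK, RMRP and RPPH1 were dropped, since their share of the TPM sets the scale of all other genes, and the libraries were rescaled to the same total. A gene was tested if 2 or more of the 16 libraries had 1 TPM or more of it, on log2(TPM + 1) with limma 3.58.1 in R 4.3.3 (empirical Bayes with a mean trend, two-sided). The model had 1 mean for each of the 8 times and the replicate number as a block, because 2 pairs alone leave 1 residual degree of freedom and all libraries leave 7. The Benjamini-Hochberg adjustment ran over all genes tested in a comparison.

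The labels do not say what a shared replicate number stands for, so the pairing was checked on the data. Deviations of same-numbered libraries from the means of their times correlated above 0.1 in 27 of 28 pairs of times (lowest 0.0734, median 0.344, 0.269 between 0 h and 36 h), across genes. The highest correlation between any 2 libraries was 0.987, and 0 pairs held identical values.

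Genes were named by a rule. It took the 15 largest called rises and falls whose higher group averaged 5 TPM or more and whose libraries did not overlap. From each list it took at most 3 called members a direction with the same minimum, and 30 markers, called or not. Other members were chosen after their values were seen. A few genes that the rule or the lists hold are not reported here by name, and the counts include them. The comparison, the lists and the markers were chosen with earlier results of these data known. Lists are described by counts and medians, with no test over a list. Promoters and their coordinates are from RefSeq (GRCh38.p14), matched by Ensembl identifier or, failing that, by symbol. An entry was found for 10751 of 21216 tested genes and 988 of 1518 called genes. All windows of a gene were used and both strands were searched. Gene classes are from GENCODE, matched by identifier. Alternatives were other scalings, pseudocounts, filters and models, and leaving out single libraries. Each library at 0, 24, 36 and 48 h was left out in turn from the comparisons that use its time. The library 48 h replicate 2 was left out from all comparisons, and those at other times from none.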

Additional observations from a re-analysis of the deposited data

How the results depend on the processing

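No called gene that was still tested changed direction under any alternative scaling, pseudocount, filter, model or left-out library. All called genes had pairs of the same sign, so dropping a library or the block could hardly reverse them. The calls of 36 h against 0 h, 796 higher and 722 lower with the replicate block, depended on the pooled spread and on single libraries. Where a count moved, the cause was not tested beyond what the alternative itself removes. With TPM as deposited, 421 genes were called higher and 534 lower, among 16967 tested. Without the replicate block, 340 were higher and 250 lower, and all 590 were also called with it. In that fit 1 gene was called between 36 h and 24 h. With the 0 h and 36 h libraries alone and the replicate block, 0 were higher and 0 lower, with a smallest limma adjusted p of 0.0847. With 1 library left out in turn, the counts were between 221 and 830 higher and between 133 and 757 lower, both lowest without 36 h replicate 2. Leaving out 36 h and 48 h replicate 2 together, chosen after seeing the data, gave 205 higher and 135 lower. Between 36 h and 24 h, 1 gene was called with a pseudocount of 5, 7 with no filter, 1 with no mean trend and 0 to 5 with 1 library left out. Between 48 h and 36 h, 1 was called with no filter and 0 to 7 with 1 library left out. Of the 162 named genes that were called, 82 were called whichever of the 4 libraries was left out, and 57 of these also without the replicate block. MYC, which was not called, changed sign, to -0.02 without 0 h replicate 1 and -0.14 without 36 h replicate 1 (limma adjusted p = 0.987 and 0.845). Its change was 0.51 without 36 h and 48 h replicate 2. Over lists and alternatives, 760 medians moved by less than the spread between the pairs and 135 by more, and 1407 member counts were within 1.5 times the reported count and 383 were not. The list medians for alveolar type II, cell death, G1, IL-6 family, named long non-coding, Notch, ribosomal protein and Wnt genes were within 0.11 of 0 and changed sign with TPM as deposited. The TPM tables give no read totals, so what depth limits at low levels cannot be stated.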

Other observations

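Of the 1518 called genes, 287 were on a list and 1231 on none. The genes described here were chosen after their values were seen, among the called genes on no list with the highest levels. Of the ERM proteins, which tie actin to the membrane, MSN (moesin) and RDX (radixin) rose from 209 and 199 to 509.9 and 519 TPM and from 197 and 123 to 346 and 335 TPM. EZR (ezrin), the epithelial member, fell from 217 and 214 to 119 and 80.8 TPM. So the family did not move as 1 group. Of surface proteins, CD151, a tetraspanin that works with laminin receptors, rose from 362 and 373 to 834 and 1098 TPM. CD59, an inhibitor of complement, rose from 306 and 209.9 to 825 and 842 TPM. AMIGO2, an adhesion protein, rose from 417 and 261 to 919 and 982 TPM. TNFRSF12A, the receptor of TWEAK, rose from 185 and 152 to 507 and 575 TPM. ALCAM, another adhesion protein, fell from 158 and 215 to 101 and 118 TPM. TGM2, a transglutaminase that cross-links matrix proteins, rose from 142 and 63.7 to 633 and 249 TPM. CCDC80, a secreted matrix protein, rose from 85.8 and 72.4 to 441 and 348 TPM. GJA1, the gap junction protein connexin 43, rose from 121 and 103 to 198 and 281 TPM. RDX, ALCAM and GJA1 lost their calls without 36 h replicate 2 or 0 h replicate 2 (limma adjusted p up to 0.223). EZR and TNFRSF12A lost their calls without 36 h replicate 2, 0 h replicate 1 or 0 h replicate 2 (limma adjusted p up to 0.133). TGM2 was not called without the replicate block (limma adjusted p up to 0.275). RDX was not called on TPM as deposited (limma adjusted p up to 0.0667). ALCAM was not called without the replicate block or on TPM as deposited (limma adjusted p up to 0.124).

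Of 12 tested S100 genes, which encode calcium-binding proteins, 3 rose and 1 fell. S100A11, S100A13 and S100A16 rose from 381 and 389 to 687 and 899.5 TPM, from 105 and 108 to 192 and 350.4 TPM and from 156 and 133 to 405 and 432 TPM. S100P fell from 3.76 and 3.61 to 0.391 and 0 TPM. The metallothioneins MT2A and MT1X rose from 285 and 125 to 719 and 776 TPM and from 153 and 88.6 to 276 and 349 TPM. NPC2, a lysosomal cholesterol carrier, rose from 213 and 136 to 753 and 1003 TPM. SQSTM1, an autophagy receptor, fell from 689 and 791 to 375 and 345 TPM. PTGR1, a reductase of reactive lipids, fell from 289.7 and 350.2 to 107 and 167 TPM. BLVRB, a flavin and biliverdin reductase, fell from 281 and 432 to 143 and 242 TPM. TRIM16L, a relative of TRIM16 on the NRF2 list, fell from 265 and 326 to 152 and 112 TPM, and near-identical sequence may be shared between them. ASPH, a hydroxylase of the endoplasmic reticulum, fell from 1139 and 942 to 378 and 366 TPM. MYOF, myoferlin, a membrane repair protein, fell from 225 and 249 to 73.7 and 75.3 TPM. HIF1A, the oxygen-regulated transcription factor subunit, fell from 335 and 276 to 220.2 and 172 TPM. NAMPT, the rate-limiting enzyme of NAD salvage, fell from 188 and 122 to 85.5 and 45.0 TPM. Each of the genes in both paragraphs moved the same way in both pairs, as did every called gene. S100A13, MT2A and TRIM16L lost their calls without 36 h replicate 2 or 0 h replicate 2 (limma adjusted p up to 0.147). S100P lost its call without 36 h replicate 2, 0 h replicate 1 or 0 h replicate 2 (limma adjusted p up to 0.189). MT1X lost its call without 36 h replicate 2, 36 h replicate 1 or 0 h replicate 2 (limma adjusted p up to 0.336). S100A11, SQSTM1, BLVRB and HIF1A lost their calls whichever of the 4 libraries was left out (limma adjusted p up to 0.397). S100A13, PTGR1 and NAMPT were not called without the replicate block (limma adjusted p up to 0.186). TRIM16L was not called with trimmed-mean scaling (limma adjusted p up to 0.0579). S100A11, SQSTM1 and BLVRB were not called without the replicate block or with trimmed-mean scaling (limma adjusted p up to 0.357). MT1X was not called without the replicate block or on TPM as deposited (limma adjusted p up to 0.0759). HIF1A was not called without the replicate block, on TPM as deposited or with trimmed-mean scaling (limma adjusted p up to 0.161).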
